A study of Mus musculus with 7 samples.

Results

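Lung tumors of mice that overexpress EZH2 were compared with lung of wild-type mice, which carry no transgene. The 5 libraries were chosen by their titles, out of 7 in the series, and comprised 3 lung tumors labelled with the genotype EZH2 overexpression (tumors 1, 2 and 3) and 2 lungs labelled normal and wild type (WT 1 and 2). The other 2 libraries, normal lung of EZH2-overexpressing mice, entered only the shared estimate of the spread. The labels name no promoter or tissue for the transgene, no strain, age or sex and no further allele, so tumor and transgene differ together between the groups and cannot be told apart here. Their source is given as lung tissue while the growth text describes culture of minced nodules, and which of these the RNA was taken from is not stated.

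EZH2 is the catalytic subunit of PRC2, the Polycomb complex that methylates lysine 27 of histone H3 and keeps developmental genes silent. Tumors of the distal lung often arise from alveolar type 2 cells, secretory cells that make surfactant lipids and proteins and carry a large endoplasmic reticulum (ER). Healthy lung holds in addition a dense capillary bed, airway epithelium, muscle and resident immune cells.

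Values are FPKM as deposited, always given in the order tumor 1, tumor 2, tumor 3 and WT 1, WT 2, and means carry SDs with n = 3 tumors and n = 2 WT lungs. Differences are tumors minus WT lung on the log2(FPKM + 1) scale, which understates the change of low genes, with the standard error (SE) and Benjamini-Hochberg adjusted p of a limma fit. A gene was called at an adjusted p under 0.05, and only called genes are said to have risen or fallen. Nothing in the labels ties each replicate to an animal of its own, and the p-values therefore reflect no more than the spread among these libraries.

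Genes were tested where 2 or more of the 5 libraries reached 1 FPKM. Of these 13656 genes 2119 rose (15.5%) and 3137 fell (23.0%), 38.5% together. Among them 888 rose and 2156 fell by more than 1 on the log2 scale. Groups did not overlap for 63.9% of all genes tested and for every called gene, and the median log2 difference of all genes was -0.05. Tumors 2 and 3 had Xist at 74.2 and 60.6 FPKM, against 0.127 in tumor 1 and 0.131 and 0.346 in the WT lungs, and were more alike (Pearson r = 0.970 over genes, which are no independent replicates) than either was to tumor 1 (0.893 and 0.891). Without tumor 1 the fit called 9323 genes, and it called 2676 without WT 1 and 2401 without WT 2. With sex, read from Xist alone, as a covariate it called 4172. Quantile normalization shifted the median to 0.11 and turned the split to 3232 higher and 2652 lower, and leaving out small RNA genes shifted it to -0.18 and gave 1524 higher and 3799 lower. The spacing of low values gives only the relative depth, and by it tumor 2 was read 1.73 times and tumor 3 1.27 times as deeply as tumor 1, and WT 1 and WT 2 1.46 and 1.37 times.

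Ezh2 was at 8.48, 23.5 and 22.6 FPKM in the tumors and 3.72 and 2.58 FPKM in the WT lungs (log2 difference 2.10, SE 0.43, adjusted p = 0.0116). The means were 18.2 ± 8.43 against 3.15 ± 0.809 FPKM. All tumors lay above both WT lungs, and tumor 1 stood well below tumors 2 and 3. An exact permutation test over the 5 libraries gave p = 0.2 (2-sided), where 0.1 is the smallest value possible. Whether the transgene contributed reads to this value is not stated. The genes that rose most were led by Dlk1, a membrane protein of the imprinted Dlk1-Dio3 locus, at 199.6, 922 and 978 FPKM in the tumors and 0.328 and 0.745 FPKM in the WT lungs (log2 difference 8.54, SE 1.05, adjusted p = 0.00177). Meg3 and Rian, noncoding RNAs of the same locus, differed by 6.76 and 6.75. In all of these tumor 1 had the lowest tumor value. Kng2, a kininogen, was at 129, 324 and 350.0 FPKM in the tumors and 0.216 and 0.273 FPKM in the WT lungs (log2 difference 7.62, SE 0.68, adjusted p = 5.84e-04). Lce3f, a cornified envelope protein, was at 94.9, 384 and 325 FPKM in the tumors and 0.143 and 0.311 FPKM in the WT lungs (log2 difference 7.55, SE 0.86, adjusted p = 0.00131). Both have close paralogs between which counting could split reads. Cd177, a surface glycoprotein known from neutrophils, was at 30.6, 568 and 697 FPKM in the tumors and 2.56 and 2.1 FPKM in the WT lungs. Cldn2, a pore-forming claudin of tight junctions, was highest in tumor 1, with 232, 34.2 and 43.1 FPKM in the tumors and 0.316 and 0.339 FPKM in the WT lungs. The membrane protein gene Tmem213 differed by 5.63. Calls ended without WT 1 or WT 2 for Ezh2 and Cd177 (highest adjusted p 0.083 to 0.0878).

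The genes that fell most were muscle, airway, capillary and blood genes. Actc1, Myl4 and Tnnt2 of heart muscle differed by -7.59, -6.47 and -6.42, and Actc1 was at 0.369, 0.1 and 0.406 FPKM in the tumors and 175 and 349 FPKM in the WT lungs. The airway cytochrome P450 genes Cyp2a5, Cyp4b1 and Cyp2f2 differed by -7.26, -6.53 and -6.06, with Cyp2f2 at 33.7, 12.3 and 21.5 FPKM in the tumors and 1368 and 1550.0 FPKM in the WT lungs. Tmem100, a capillary endothelial gene, was at 1.26, 0.721 and 1.2 FPKM in the tumors and 274 and 317 FPKM in the WT lungs (log2 difference -7.18, SE 0.16, adjusted p = 8.07e-05). Hemoglobin Hba-a2 was at 0.00101, 25 and 46.6 FPKM in the tumors and 1058 and 1512 FPKM in the WT lungs, and its reads could be shared with Hba-a1. Groups that do not overlap were a condition for naming these genes. In bulk samples like these, fewer cells of a type and less RNA per cell cannot be told apart. Leaving out 1 library ended calls without WT 1 or WT 2 for Hba-a2 (highest adjusted p = 0.101).

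Markers of lung cell types were counted for use beside the programs that follow. All 14 endothelial markers fell, with a summed level of at most 236 FPKM in the tumors and of 2193 to 2614 FPKM in the WT lungs and none listed at 0. All 12 ciliated markers fell (summed 13.1 to 23.8 against 536 to 604 FPKM, with Dnah5 and Dnaic1 listed at 0 in tumor 2), as did all 8 of cardiac muscle (3.63 to 8.39 against 778 to 1357 FPKM, with Myl7 listed at 0 in tumor 2 and Mb in tumor 1). Of 8 smooth muscle and pericyte markers 6 fell (71.8 to 399.5 against 460.2 to 643 FPKM). Among 10 alveolar type 1 markers 7 fell (978 to 1471 against 3408 to 3829 FPKM). The 4 tested mesothelial markers fell (0.155 to 7.86 against 58.4 to 109 FPKM), as did the 4 tested erythroid ones (47.4 to 178 against 3418 to 3604 FPKM) and the 1 tested basal marker. None of 4 tested neutrophil markers was called (9.19 to 29.9 against 17.7 to 23.7 FPKM), and of 4 tested adipocyte markers 1 rose and 3 fell (49.1 to 114 against 36.2 to 43.6 FPKM, with Adipoq listed at 0 in tumors 1 and 2 and Cfd in tumor 2). Macrophage markers rose in 6 of 12 cases (609.6 to 1696 against 192 to 247 FPKM). Alveolar type 2 markers rose in 7 of 10 (12978 to 43944 against 15498 to 19291 FPKM), of which Sftpc was listed at 35944 FPKM in tumor 1, at 0 in tumors 2 and 3 and at 15915 and 13050.0 FPKM in the WT lungs.

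The programs described next are 49 lists with 1185 different genes tested and 74 below the expression minimum, and in 49 of those tested all libraries of 1 group lay under 1 FPKM. Of the genes tested 473 were called. Shares above and below the background of 15.5% and 23.0% are plotted by list.

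**Figure D1:**
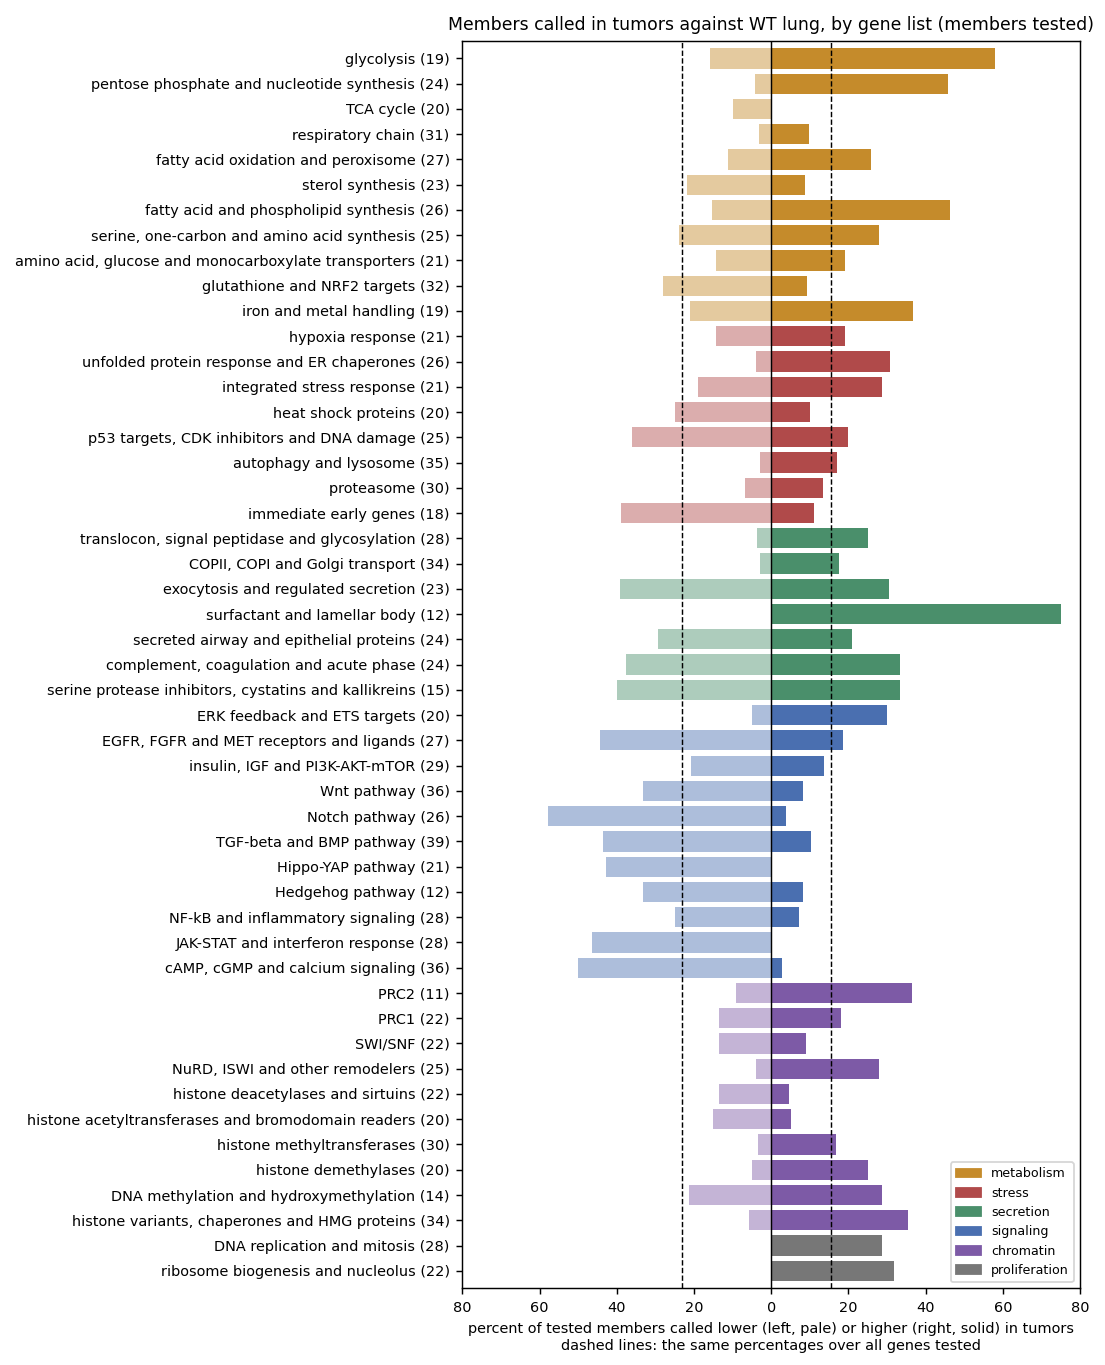
Percent of tested members called higher (right, solid) and lower (left, pale) in the tumors for each gene list, colored by theme, with the number of members tested in parentheses and the shares over all 13656 genes (15.5% and 23.0%) as dashed lines. Bars for surfactant, glycolysis, lipid and nucleotide synthesis reach furthest right. Those for Notch, for cAMP, cGMP and calcium, and for interferon signaling reach furthest left.

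Glycolysis was the metabolic list with the largest share of members higher. Of glycolytic enzymes and transporters, 11 of 19 tested rose and 3 fell, with a median log2 difference of 0.91. Enolase Eno1 was at 171, 157 and 136 FPKM in the tumors and 51.6 and 35.4 FPKM in the WT lungs (log2 difference 1.82, SE 0.20, adjusted p = 0.00122). Gapdh was at 558, 1018 and 1176 FPKM in the tumors and 259.8 and 242 FPKM in the WT lungs (log2 difference 1.80, SE 0.32, adjusted p = 0.00701), with tumor 1 lowest of the tumors. Lactate dehydrogenase Ldha, which regenerates NAD+ from pyruvate, was at 450.2, 427 and 464 FPKM in the tumors and 161 and 140.0 FPKM in the WT lungs (log2 difference 1.57, SE 0.13, adjusted p = 4.66e-04), a narrow range in each group. Tpi1, Aldoc, Pgam1, Gpi1, Pfkl and Pkm rose as well, by 1.24, 1.19, 1.04, 1.03, 0.91 and 0.75. The hexokinases parted. Hk2, the insulin-regulated form, rose from 5.3 and 5.58 FPKM in the WT lungs to 8.33, 17.4 and 20.7 FPKM (log2 difference 1.27, SE 0.36, adjusted p = 0.0354), and Hk1, the widely expressed form, fell (log2 difference -1.49, SE 0.42, adjusted p = 0.0347). Pfkfb3, which makes the activator of phosphofructokinase, and the platelet isoform Pfkp also fell, by 1.19 and 0.94. Pgk1 did not pass the test (0.10), nor did Aldoa, at 258, 685 and 802 FPKM in the tumors and 262 and 272 FPKM in the WT lungs. The glycolysis counts ran from 3 (without WT 2) to 13 (without tumor 1) higher and from 1 (without tumor 2, tumor 3, WT 1 or WT 2) to 4 (without tumor 1) lower. The call was lost without WT 2 for Gapdh and Aldoc (adjusted p 0.0577 to 0.105), without WT 1 or WT 2 for Tpi1, Gpi1, Pfkl and Pkm (highest adjusted p 0.0911 to 0.123) and without tumor 2, tumor 3, WT 1 or WT 2 for Hk2, Hk1 and Pfkp (highest adjusted p 0.155 to 0.169). A call was also lost with sex as a covariate for Hk2, Hk1 and Pfkp, in a fit of the 5 libraries alone for Hk2, Hk1 and Pfkp and under at least 1 other scaling for Hk2.

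The mitochondrial lists stood below the background in both directions. Of citric acid cycle genes, none of 20 tested rose and 2 fell, with a median log2 difference of 0.10 that took the other sign without small RNA genes. The genes that fell were Ogdh, of the oxoglutarate dehydrogenase complex, at 26.7, 19.3 and 21.8 FPKM in the tumors and 43.2 and 43.2 FPKM in the WT lungs (log2 difference -0.91, SE 0.15, adjusted p = 0.00547), and Idh3a, a subunit of isocitrate dehydrogenase (log2 difference -0.69, SE 0.16, adjusted p = 0.0189). Of respiratory chain subunits, 3 of 31 tested rose and 1 fell, with a median log2 difference of 0.32. Atp5c1 and Atp5o of the ATP synthase rose by 0.94 and 0.63, and Ndufa1 of complex I fell by 0.61. After rescaling to TPM and without small RNA genes neither ATP synthase gene passed. The citric acid cycle counts ran from 0 (without tumor 3, WT 1 or WT 2) to 6 (without tumor 1) higher and from 1 (without tumor 2, tumor 3, WT 1 or WT 2) to 5 (without tumor 1) lower, and the respiratory chain counts from 0 (without tumor 2, tumor 3, WT 1 or WT 2) to 18 (without tumor 1) higher and from 0 (without WT 1 or WT 2) to 2 (without tumor 1) lower. Refitting on the other libraries ended calls without tumor 2, tumor 3, WT 1 or WT 2 for Idh3a, Atp5c1 and Atp5o (highest adjusted p 0.135 to 0.173) and without WT 1 or WT 2 for Ndufa1 (highest adjusted p = 0.0976). The threshold was also missed with sex as a covariate for Idh3a, Atp5c1 and Atp5o, in a fit of the 5 libraries alone for Atp5c1 and Atp5o and under at least 1 other scaling for Atp5c1 and Atp5o.

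The pentose phosphate branch and nucleotide synthesis shifted upward. Of these genes, 11 of 24 tested rose and 1 fell, with a median log2 difference of 0.53. Paics, a bifunctional enzyme of purine synthesis, was at 108, 126 and 117 FPKM in the tumors and 44.3 and 41.6 FPKM in the WT lungs (log2 difference 1.43, SE 0.11, adjusted p = 4.13e-04). Ppat and Gart, the purine steps before it, rose by 1.06 and 0.78, and Gmps and Umps, which make GMP and UMP, by 0.69 and 0.68. The oxidative pentose phosphate enzymes G6pdx, Pgls and Pgd rose by 0.82, 1.32 and 0.93. The exception was Impdh1, an IMP dehydrogenase, at 11.5, 8.68 and 9.39 FPKM in the tumors and 53.5 and 59.8 FPKM in the WT lungs (log2 difference -2.42, SE 0.17, adjusted p = 2.94e-04). Its paralog Impdh2 did not pass (0.34). The counts of this list ran from 2 (without WT 2) to 13 (without tumor 1) higher. Among the genes named here calls ended without WT 1 or WT 2 for Ppat and Gmps (highest adjusted p 0.072 to 0.0783), without tumor 2, WT 1 or WT 2 for Umps (highest adjusted p = 0.153), without tumor 3, WT 1 or WT 2 for G6pdx (highest adjusted p = 0.131), without tumor 2, tumor 3, WT 1 or WT 2 for Pgls (highest adjusted p = 0.131) and without WT 2 for Pgd (adjusted p = 0.0558). Calls were lost as well with sex as a covariate for Pgls, in a fit of the 5 libraries alone for Umps and Pgls and under at least 1 other scaling for Umps.

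Of genes for fatty acid and phospholipid synthesis, 12 of 26 tested rose and 4 fell, with a median log2 difference of 0.21. Fatty acid synthase Fasn was at 129.9, 84.9 and 75.1 FPKM in the tumors and 26.4 and 19.7 FPKM in the WT lungs (log2 difference 2.00, SE 0.27, adjusted p = 0.00238). The enzymes that feed it rose beside it, with Acly, Acaca and Me1 at differences of 1.09, 0.97 and 1.90. Me1, which supplies NADPH, lay between 91.8 and 95.9 FPKM in the tumors. Fabp5, a fatty acid binding protein, was at 166, 923 and 821 FPKM in the tumors and 81 and 55.7 FPKM in the WT lungs (log2 difference 2.88, SE 0.74, adjusted p = 0.025), far higher in tumors 2 and 3 than in tumor 1. Lpcat1, which remodels phosphatidylcholine for surfactant, was at 350.3, 327 and 240.4 FPKM in the tumors and 64.2 and 45.7 FPKM in the WT lungs (log2 difference 2.46, SE 0.33, adjusted p = 0.00236). Gpam, the first enzyme of glycerolipid synthesis, was at 4.59, 1.99 and 2.19 FPKM in the tumors and 18.5 and 16.7 FPKM in the WT lungs (log2 difference -2.31, SE 0.31, adjusted p = 0.00244), and Lpin1, a phosphatidate phosphatase, fell by 1.37. The elongase Elovl5 fell by 1.43, and the desaturase Scd1 did not pass, at 125, 30.6 and 47.2 FPKM in the tumors and 169 and 136 FPKM in the WT lungs. Lpcat1 and surfactant lipids belong to alveolar type 2 cells, whose markers, Lpcat1 among them, rose in 7 of 10 cases, and their part was not tested. The counts for fatty acid and phospholipid synthesis ran from 3 (without WT 2) to 13 (without tumor 1) higher. The test was no longer passed without tumor 2, WT 1 or WT 2 for Acly (highest adjusted p = 0.167) and without tumor 2, tumor 3, WT 1 or WT 2 for Acaca and Fabp5 (highest adjusted p 0.144 to 0.153). Further losses came with sex as a covariate for Acaca and Fabp5 and in a fit of the 5 libraries alone for Acly, Acaca and Fabp5.

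Of sterol pathway genes, 2 of 23 tested rose and 5 fell, with a median log2 difference of -0.34, and the share that fell (21.7%) was near the 23.0% of all genes. Squalene epoxidase Sqle was at 5.64, 6.11 and 6.35 FPKM in the tumors and 10.7 and 12.6 FPKM in the WT lungs and fell by 0.84. Mvd, mevalonate diphosphate decarboxylase, rose (log2 difference 1.15, SE 0.13, adjusted p = 0.00122). Hmgcs1, the synthase early in the pathway, was listed at 0 in all 5 libraries, and whether these 0s are missing values is not stated. Of genes for fatty acid oxidation and peroxisomes, 7 of 27 tested rose and 3 fell, with a median log2 difference of 0.26. Here Cat, the peroxisomal catalase, was at 255, 371 and 363 FPKM in the tumors and 100.4 and 107 FPKM in the WT lungs (log2 difference 1.64, SE 0.22, adjusted p = 0.00252). Pex11a, a factor of peroxisome division, and Pparg, the lipid-sensing nuclear receptor, differed by 2.32 and 1.78. Cpt1a and Cpt1b, which load fatty acids for transport into mitochondria, fell by 0.81 and 1.25. Cpt1b is known from muscle, and the cardiac markers fell beside it (8 of 8), whose part was not tested. The sterol counts ran from 1 (without tumor 2, tumor 3, WT 1 or WT 2) to 6 (without tumor 1) higher and from 0 (without WT 2) to 7 (without tumor 1) lower, and those for oxidation and peroxisomes from 2 (without WT 1 or WT 2) to 15 (without tumor 1) higher and from 0 (without WT 2) to 3 (without tumor 1) lower. A call was not kept without WT 2 for Sqle (adjusted p = 0.0911), without WT 1 or WT 2 for Pex11a and Pparg (highest adjusted p 0.0876 to 0.0886) and without tumor 2, tumor 3, WT 1 or WT 2 for Cpt1a and Cpt1b (highest adjusted p 0.133 to 0.235). Other fits ended calls with sex as a covariate for Pparg and Cpt1b and under at least 1 other scaling for Cpt1b.

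Members of amino acid and folate metabolism changed in both directions. Of these genes, 7 of 25 tested rose and 6 fell, with a median log2 difference of 0.18. The share that rose was 28.0% against 15.5% of all genes, and the share that fell (24.0%) was near their 23.0%. The cytosolic folate enzymes Shmt1 and Mthfd1 rose, Shmt1 at 17.2, 29.4 and 28.6 FPKM in the tumors and 3.03 and 2.62 FPKM in the WT lungs (log2 difference 2.74, SE 0.25, adjusted p = 5.84e-04) and Mthfd1 at 38.8, 80.8 and 71.7 FPKM in the tumors and 16 and 16.2 FPKM in the WT lungs (log2 difference 1.86, SE 0.33, adjusted p = 0.00645). Mitochondrial counterparts did not rise, with Shmt2 at a difference of 0.01, Mthfd2 at 0.37 and Mthfd1l lower by 1.23. Psat1 of the serine pathway was highest in tumor 1, at 34.6, 16.9 and 13.7 FPKM in the tumors and 6.05 and 6.52 FPKM in the WT lungs (log2 difference 1.53, SE 0.37, adjusted p = 0.0203). Arg2, mitochondrial arginase, was at 22.3, 128 and 142 FPKM in the tumors and 5.63 and 2.79 FPKM in the WT lungs (log2 difference 3.91, SE 0.80, adjusted p = 0.0116). Ass1, which makes argininosuccinate, was at 2.08, 4.97 and 8.4 FPKM in the tumors and 19.1 and 17.7 FPKM in the WT lungs (log2 difference -1.80, SE 0.44, adjusted p = 0.021). Among transporters, 4 of 21 tested rose and 3 fell, with a median log2 difference of -0.16 that took the other sign in 2 alternatives. The glucose transporter Slc2a3 was at 137, 28.1 and 14.3 FPKM in the tumors and 2.4 and 1.64 FPKM in the WT lungs (log2 difference 3.72, SE 0.90, adjusted p = 0.0206), with tumor 1 far above the others. Slc7a5, the light chain of a large neutral amino acid transporter, rose by 1.75, and its heavy chain Slc3a2 fell by 0.89. The Slc7a5 call was also lost under median-of-ratios scaling and rescaling to TPM. Slc6a14, another amino acid transporter, was at 4.82, 2.79 and 3.21 FPKM in the tumors and 24.8 and 23.1 FPKM in the WT lungs (log2 difference -2.46, SE 0.21, adjusted p = 4.90e-04). The synthesis counts ran from 4 (without WT 2) to 10 (without tumor 1) higher and from 2 (without WT 1 or WT 2) to 8 (without tumor 1) lower and the transporter counts from 1 (without WT 1 or WT 2) to 5 (without tumor 1) higher and from 2 (without tumor 2, WT 1 or WT 2) to 9 (without tumor 1) lower. Calls ended without WT 1 or WT 2 for Mthfd1l, Psat1 and Slc2a3 (highest adjusted p 0.0655 to 0.117), without WT 2 for Arg2 (adjusted p = 0.0874), without tumor 2, WT 1 or WT 2 for Ass1 and Slc3a2 (highest adjusted p 0.11 to 0.211) and without tumor 2, tumor 3, WT 1 or WT 2 for Slc7a5 (highest adjusted p = 0.201). Calls ended too with sex as a covariate for Slc7a5, in a fit of the 5 libraries alone for Slc7a5 and Slc3a2 and under at least 1 other scaling for Slc7a5 and Slc3a2.

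Of genes for iron and metal handling, 7 of 19 tested rose and 4 fell, with a median log2 difference of 0.19. The share that rose was 36.8% against 15.5% of all genes, and the share that fell (21.1%) was near their 23.0%. Lcn2, lipocalin 2, which binds bacterial iron carriers, was at 769, 2879.6 and 4154 FPKM in the tumors and 60.8 and 44.6 FPKM in the WT lungs (log2 difference 5.30, SE 0.74, adjusted p = 0.00281). Transferrin Trf, the plasma iron carrier, was at 1344, 1769 and 1685 FPKM in the tumors and 123 and 122 FPKM in the WT lungs (log2 difference 3.69, SE 0.22, adjusted p = 2.22e-04), or 1599 ± 225 against 122 ± 0.767 FPKM on average. The transferrin receptor Tfrc rose by 1.24, and the iron exporter Slc40a1 was at 7.49, 63.1 and 53.5 FPKM in the tumors and 1.52 and 2.52 FPKM in the WT lungs (log2 difference 3.38, SE 0.86, adjusted p = 0.0244). Hamp, the hepcidin peptide that degrades this exporter, was listed at 0 in tumors 1 and 2 and at 0.224 FPKM in tumor 3, with 8.86 and 44.9 FPKM in the WT lungs. Hp, the hemoglobin scavenger haptoglobin, was at 99.1, 69.5 and 97.5 FPKM in the tumors and 541 and 572 FPKM in the WT lungs (log2 difference -2.65, SE 0.23, adjusted p = 5.17e-04). Hp is also a club marker, of which 5 of 7 fell, and the part of club cells was not tested. The ferritin chains Fth1 and Ftl1 did not pass (-0.36 and 0.52). The iron and metal counts ran from 4 (without WT 1 or WT 2) to 8 (without tumor 1) higher and from 2 (without WT 2) to 6 (without tumor 1) lower. Leaving out 1 library ended calls without tumor 2, tumor 3, WT 1 or WT 2 for Slc40a1 (highest adjusted p = 0.13). The same was so with sex as a covariate for Slc40a1 and in a fit of the 5 libraries alone for Slc40a1.

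The metallothioneins Mt1 and Mt2, small cysteine-rich proteins that bind zinc and copper, rose together. Mt1 was at 362, 1112 and 1099 FPKM in the tumors and 137 and 137 FPKM in the WT lungs (log2 difference 2.47, SE 0.51, adjusted p = 0.0116) and Mt2 at 249, 691 and 648 FPKM in the tumors and 63.3 and 63.2 FPKM in the WT lungs (log2 difference 2.91, SE 0.49, adjusted p = 0.00557). Tumors 2 and 3 were alike and tumor 1 was lowest of the tumors for both, and counting could split reads between these paralogs. Slc30a1, the zinc exporter, went the other way, at 7.46, 10.7 and 10.3 FPKM in the tumors and 16.2 and 15.8 FPKM in the WT lungs (log2 difference -0.71, SE 0.17, adjusted p = 0.0188). The factor known to act on all 3 genes, Mtf1, did not pass (-0.36). Mt1, Mt2 and Slc30a1 are shown by the 250 bases before their first listed start in RefSeq (build GRCm38.p6, matched by symbol, since the FPKM were made on mm9), because each holds a match to the metal response element. Capitals mark TGCACNC and TGCGCNC on either strand, and each window is written 5′ to 3′ on the gene's strand, all of them on the plus strand. Mt1 is at chr8:94178839-94179088, Mt2 at chr8:94172368-94172617 and Slc30a1 at chr1:191906531-191906780.
Mt1: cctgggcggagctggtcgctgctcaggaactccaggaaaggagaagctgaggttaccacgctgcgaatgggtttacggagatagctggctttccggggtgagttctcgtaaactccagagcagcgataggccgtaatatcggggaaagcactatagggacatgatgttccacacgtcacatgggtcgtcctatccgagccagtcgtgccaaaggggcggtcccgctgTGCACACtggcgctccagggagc
Mt2: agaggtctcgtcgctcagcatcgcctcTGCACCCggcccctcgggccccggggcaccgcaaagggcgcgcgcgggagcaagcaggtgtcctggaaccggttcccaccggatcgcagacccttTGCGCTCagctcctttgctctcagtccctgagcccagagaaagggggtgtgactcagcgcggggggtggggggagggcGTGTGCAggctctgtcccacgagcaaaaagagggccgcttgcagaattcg
Slc30a1: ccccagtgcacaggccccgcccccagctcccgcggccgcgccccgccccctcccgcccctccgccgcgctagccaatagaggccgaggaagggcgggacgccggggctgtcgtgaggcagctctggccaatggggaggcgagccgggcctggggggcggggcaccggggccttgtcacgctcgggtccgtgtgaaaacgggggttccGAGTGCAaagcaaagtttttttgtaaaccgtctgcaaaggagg
The windows of Mt1, Mt2 and Slc30a1 held 1, 3 and 1 matches. At least 1 match occurred in 21.3% of 27025 promoters of the same length, so a match is common, and it was found in 4 of the 14 list members with an entry, Tfrc being the other. The matches describe letters only. The call was lost without WT 1 or WT 2 for Mt1 and Slc30a1 (highest adjusted p 0.0748 to 0.114).

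**Figure D2:**
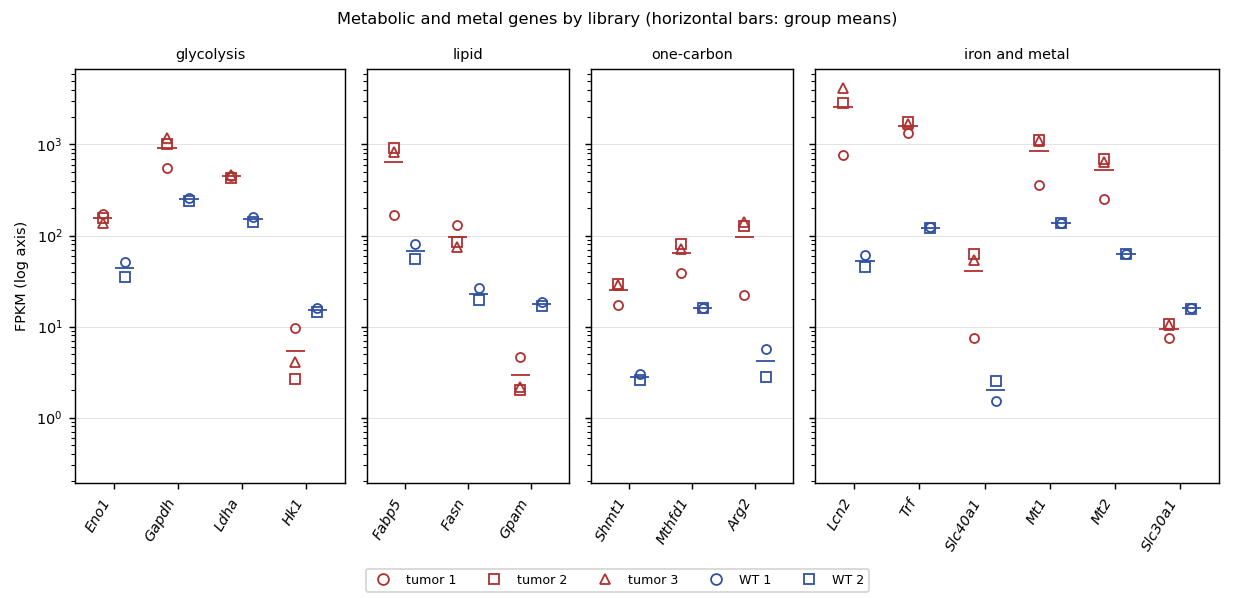
FPKM (log axis) of metabolic and metal genes in each tumor (red, symbols by tumor) and WT lung (blue), with horizontal bars at the group means. The groups do not overlap for any gene shown, as for every called gene. Tumor 1 lies apart from tumors 2 and 3 for Fabp5, Arg2, Lcn2, Slc40a1, Mt1 and Mt2.

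Of glutathione enzymes and NRF2 targets, 3 of 32 tested rose and 9 fell, with a median log2 difference of 0.01 that took the other sign after rescaling to TPM, without small RNA genes and in 6 other alternatives. The share that fell (28.1%) was close to that of all genes (23.0%). Gsta2, a glutathione transferase with close paralogs, was at 0.0221, 0.346 and 0.442 FPKM in the tumors and 6.33 and 5.69 FPKM in the WT lungs (log2 difference -2.48, SE 0.20, adjusted p = 4.03e-04). Gsto1, an omega-class transferase, was at 27.7, 6.13 and 7.86 FPKM in the tumors and 45.6 and 54.9 FPKM in the WT lungs (log2 difference -2.07, SE 0.58, adjusted p = 0.0329). Gpx3, the plasma glutathione peroxidase, was at 259, 108 and 163 FPKM in the tumors and 546 and 786 FPKM in the WT lungs (log2 difference -1.97, SE 0.37, adjusted p = 0.00875). Nqo1, a quinone reductase much used as an NRF2 target, was at 0.412, 2.08 and 2.46 FPKM in the tumors and 8.93 and 6.86 FPKM in the WT lungs (log2 difference -1.84, SE 0.44, adjusted p = 0.02). Against this, heme oxygenase Hmox1 was at 49.9, 70.7 and 63 FPKM in the tumors and 17.2 and 15.1 FPKM in the WT lungs (log2 difference 1.85, SE 0.21, adjusted p = 0.00132), and Nfe2l2, which encodes NRF2, rose by 0.74. Gclc, Gclm, Srxn1 and Txnrd1, other usual targets, did not pass (0.47, -0.44, 0.17 and 0.13). Several members are abundant in club cells, and of 7 club markers 5 fell and 1 rose (summed 206 to 2440.4 against 3598 to 3664 FPKM). The gene that rose, Scgb1a1, was at 2227, 56.3 and 1095 FPKM in the tumors and listed at 0 in both WT lungs. It was also listed at 0 in both normal lungs of EZH2-overexpressing mice. Whether these 0s are missing values is not stated, so its rise is uncertain, and the sums include it. The part of club cells was not tested. The counts of this list ran from 1 (without tumor 2, tumor 3, WT 1 or WT 2) to 13 (without tumor 1) higher and from 4 (without WT 2) to 12 (without tumor 1) lower. Refitting on the other libraries ended calls without tumor 2, tumor 3, WT 1 or WT 2 for Gsto1 and Nfe2l2 (highest adjusted p 0.133 to 0.163), without WT 2 for Gpx3 (adjusted p = 0.0741) and without WT 1 or WT 2 for Nqo1 (highest adjusted p = 0.119). The threshold was also missed with sex as a covariate for Gsto1 and Nfe2l2, in a fit of the 5 libraries alone for Gsto1 and under at least 1 other scaling for Nfe2l2.

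The hypoxia list split between its transcription factors. Of hypoxia response genes, 4 of 21 tested rose and 3 fell, with a median log2 difference of -0.02 that took the other sign after median-of-ratios scaling, after quantile normalization and in 4 other alternatives. Hif1a was at 27.9, 36.9 and 36.6 FPKM in the tumors and 15.6 and 14.5 FPKM in the WT lungs (log2 difference 1.10, SE 0.16, adjusted p = 0.00348). Epas1, which encodes HIF-2 alpha and is abundant in lung capillaries, was at 47.4, 54.8 and 56.5 FPKM in the tumors and 481 and 560.1 FPKM in the WT lungs (log2 difference -3.27, SE 0.15, adjusted p = 1.55e-04). Vegfa, the endothelial growth factor, fell from 301 and 372 to 124, 86.6 and 77.7 FPKM (log2 difference -1.82, SE 0.24, adjusted p = 0.00227). Vegfa is also an alveolar type 1 marker, of which 7 of 10 fell, and the endothelial markers fell beside Epas1, and the part of these cells was not tested. Egln3, an oxygen-sensing prolyl hydroxylase, rose by 2.52. The common targets Bnip3, Adm, Ndrg1 and Car9 did not pass (0.59, -0.04, -0.74 and 0.23). Hypoxia counts ran from 1 (without tumor 2, tumor 3, WT 1 or WT 2) to 7 (without tumor 1) higher and from 2 (without tumor 2, tumor 3, WT 1 or WT 2) to 6 (without tumor 1) lower. Among the genes named here calls ended without tumor 2, tumor 3, WT 1 or WT 2 for Egln3 (highest adjusted p = 0.115). Calls were lost as well with sex as a covariate for Egln3.

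Several folding enzymes of the ER rose. Of genes of the unfolded protein response and ER chaperones, 8 of 26 tested rose and 1 fell, with a median log2 difference of 0.31. Sel1l, the adaptor of ER-associated degradation, was at 94.2, 96.8 and 81.3 FPKM in the tumors and 27.8 and 25.5 FPKM in the WT lungs (log2 difference 1.73, SE 0.13, adjusted p = 3.30e-04). The disulfide isomerases Pdia4, P4hb, Pdia6 and Pdia3 rose by 1.23, 1.19, 1.05 and 0.74. P4hb was at 425, 343 and 382 FPKM in the tumors and 174 and 159 FPKM in the WT lungs. Hspa5, the chaperone BiP, was at 270.5, 286 and 349 FPKM in the tumors and 195 and 140.3 FPKM in the WT lungs (log2 difference 0.85, SE 0.23, adjusted p = 0.0289). Calreticulin Calr, which folds glycoproteins, was at 394, 327 and 384 FPKM in the tumors and 198 and 153 FPKM in the WT lungs (log2 difference 1.07, SE 0.19, adjusted p = 0.00672). Of the 3 sensors Atf6 fell by 0.48, and Ern1 and Eif2ak3 did not pass (0.26 and -0.11), nor did the effector Xbp1 (0.41). Other usual targets, Herpud1, Dnajb9 and Hyou1, did not pass either (0.36, -0.06 and 0.15). The counts of this list ran from 3 (without WT 2) to 10 (without tumor 1) higher and from 0 (without tumor 2, tumor 3, WT 1 or WT 2) to 4 (without tumor 1) lower. The test was no longer passed without tumor 2, tumor 3, WT 1 or WT 2 for Pdia4, Hspa5 and Atf6 (highest adjusted p 0.152 to 0.194), without tumor 3 or WT 2 for Pdia3 (highest adjusted p = 0.131) and without WT 2 for Calr (adjusted p = 0.0653). Further losses came with sex as a covariate for Pdia4 and Hspa5.

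Hspa5, Calr and Pdia6 are shown as the members that rose among those whose windows hold the ER stress element. ATF6 is known to act through this element. Capitals mark CCAAT followed after any 9 bases by CCACG, on either strand, in the 250 bases before the first start listed in RefSeq (GRCm38.p6). Hspa5 is at chr2:34771840-34772089 and Pdia6 at chr12:17266339-17266588, both on the plus strand, and Calr at chr8:84846932-84847181 on the minus strand.
Hspa5: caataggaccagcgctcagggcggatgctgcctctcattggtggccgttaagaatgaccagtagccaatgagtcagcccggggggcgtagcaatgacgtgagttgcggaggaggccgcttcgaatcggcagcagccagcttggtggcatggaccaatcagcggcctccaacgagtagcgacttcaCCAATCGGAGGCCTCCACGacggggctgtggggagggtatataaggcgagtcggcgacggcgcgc
Calr: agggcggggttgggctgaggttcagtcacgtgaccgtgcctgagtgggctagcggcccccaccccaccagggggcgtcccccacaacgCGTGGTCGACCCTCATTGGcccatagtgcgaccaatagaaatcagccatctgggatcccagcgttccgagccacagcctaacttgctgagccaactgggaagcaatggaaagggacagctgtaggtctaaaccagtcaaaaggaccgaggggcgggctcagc
Pdia6: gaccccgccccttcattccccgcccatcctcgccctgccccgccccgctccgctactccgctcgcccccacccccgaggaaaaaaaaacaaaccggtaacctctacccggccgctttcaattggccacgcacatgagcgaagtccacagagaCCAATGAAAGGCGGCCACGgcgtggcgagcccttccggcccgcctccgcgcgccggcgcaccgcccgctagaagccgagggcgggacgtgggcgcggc
In Hspa5 the match spans the bases 65 to 47 before the start, in Pdia6 98 to 80, and in Calr 162 to 144 in reverse. The element occurred in 0.122% of 27025 promoters and in 9 of the 22 members of the list with an entry. Of these 9, Hspa5, Calr and Pdia6 rose, and Hsp90b1, Canx, Dnajc3, Creld2, Syvn1 and Derl3 did not pass (0.44, -0.31, -0.80, -0.33, 0.06 and 0.65). Sel1l, Pdia4 and P4hb, with the largest differences, were not among the 9, which says only that these letters are not in their windows or that they have no entry.

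Of integrated stress response genes, 6 of 21 tested rose and 4 fell, with a median log2 difference of 0.26. All 4 genes that fell encode transcription factors of the bZIP class. Atf4, the central factor, was at 63.6, 59.6 and 65.8 FPKM in the tumors and 108 and 104 FPKM in the WT lungs (log2 difference -0.75, SE 0.11, adjusted p = 0.00394). Atf3 was at 1.65, 1.71 and 2.82 FPKM in the tumors and 6.37 and 9.07 FPKM in the WT lungs (log2 difference -1.51, SE 0.36, adjusted p = 0.0188). Ddit3, also called CHOP, was at 10.3, 10.6 and 12.6 FPKM in the tumors and 27.8 and 25 FPKM in the WT lungs (log2 difference -1.17, SE 0.15, adjusted p = 0.00218). Atf5 fell by 1.04, and Cebpb and Cebpg of the same class did not pass (-0.58 and 0.26). The tRNA synthetases Gars and Wars rose by 1.53 and 0.47, and Gars was at 58.6, 102 and 128 FPKM in the tumors and 31.9 and 30.1 FPKM in the WT lungs. Trib3, a pseudokinase induced by CHOP, rose from 3.61 and 4.4 to 7.94, 13.9 and 13.2 FPKM (log2 difference 1.31, SE 0.25, adjusted p = 0.00872). The counts ran from 0 (without WT 1) to 11 (without tumor 1) higher and from 2 (without tumor 2, WT 1 or WT 2) to 7 (without tumor 1) lower. A call was not kept without tumor 2, WT 1 or WT 2 for Atf3 and Atf5 (highest adjusted p 0.13 to 0.165), without WT 1 or WT 2 for Gars (highest adjusted p = 0.0791), without tumor 2, tumor 3, WT 1 or WT 2 for Wars (highest adjusted p = 0.173) and without WT 1 for Trib3 (adjusted p = 0.0699). Other fits ended calls with sex as a covariate for Wars, in a fit of the 5 libraries alone for Atf5 and under at least 1 other scaling for Atf5 and Wars.

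Of heat shock proteins and their partners, 2 of 20 tested rose and 5 fell, with a median log2 difference of -0.53, and the share that fell (25.0%) was near the 23.0% of all genes. Hspb8, a small heat shock protein, was at 4.17, 1.35 and 1.65 FPKM in the tumors and 34.6 and 41.1 FPKM in the WT lungs (log2 difference -3.61, SE 0.34, adjusted p = 6.97e-04). Hspb1 was at 28.5, 8.79 and 9.46 FPKM in the tumors and 166 and 164 FPKM in the WT lungs (log2 difference -3.52, SE 0.54, adjusted p = 0.00393). Cryab, alpha-B crystallin, was at 23.4, 45.7 and 43.2 FPKM in the tumors and 155 and 198 FPKM in the WT lungs (log2 difference -2.25, SE 0.30, adjusted p = 0.00242). Bag3, the partner of Hspb8 in chaperone-assisted autophagy, fell by 0.65. These genes are abundant in muscle, and the markers of cardiac muscle (8 of 8) and of smooth muscle and pericytes (6 of 8) fell beside them, whose part was not tested. The mitochondrial chaperones Hspe1 and Hspa9 rose by 0.87 and 0.67, with Hspe1 at 95, 109.5 and 106 FPKM in the tumors and 58.1 and 53.8 FPKM in the WT lungs, and Hspd1, the partner of Hspe1, did not pass (0.55). The inducible Hspa1a and Hspa1b did not pass (-0.98 and -0.66), nor did Hsf1, the factor that induces them (-0.64). Heat shock counts ran from 0 (without tumor 2, tumor 3, WT 1 or WT 2) to 2 (without tumor 1) higher and from 3 (without WT 1 or WT 2) to 8 (without tumor 1) lower. Calls ended without tumor 2, tumor 3, WT 1 or WT 2 for Bag3, Hspe1 and Hspa9 (highest adjusted p 0.127 to 0.233). Calls ended too with sex as a covariate for Bag3 and Hspe1, in a fit of the 5 libraries alone for Bag3 and under at least 1 other scaling for Hspa9.

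Immediate early genes stood lower in part. Of this list, 2 of 18 tested rose and 7 fell, with a median log2 difference of -0.39. Klf4, a zinc finger factor of epithelium and endothelium, was at 8.68, 3.04 and 4.35 FPKM in the tumors and 78.5 and 67.6 FPKM in the WT lungs (log2 difference -3.64, SE 0.41, adjusted p = 0.00131). Klf2, which shear stress induces in endothelium, was at 10.7, 12.2 and 13.2 FPKM in the tumors and 128 and 117 FPKM in the WT lungs (log2 difference -3.24, SE 0.28, adjusted p = 4.95e-04). Jun, a subunit of AP-1, was at 23.5, 10.8 and 14.1 FPKM in the tumors and 79.8 and 96.5 FPKM in the WT lungs (log2 difference -2.44, SE 0.31, adjusted p = 0.00197). Junb, another AP-1 subunit, rose by 1.22. Fos, Egr1 and Zfp36, often the fastest to respond to tissue handling, did not pass (-0.21, 0.12 and -0.08). The endothelial markers fell beside Klf2, and their part was not tested. The early gene counts ran from 1 (without tumor 2, tumor 3, WT 1 or WT 2) to 3 (without tumor 1) higher.

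Cdkn2a rose most among growth arrest genes. Of p53 targets, CDK inhibitors and DNA damage genes, 5 of 25 tested rose and 9 fell, with a median log2 difference of 0.08 that took the other sign after rescaling to TPM, without small RNA genes and in 2 other alternatives. Cdkn2a, the locus of p16 and p19Arf and a classical PRC2 target, was at 34.3, 31.8 and 31.3 FPKM in the tumors and 2.07 and 3.87 FPKM in the WT lungs (log2 difference 3.11, SE 0.26, adjusted p = 4.58e-04), or 32.5 ± 1.61 against 2.97 ± 1.27 FPKM on average, with no overlap. The deposited value does not separate its 2 transcripts. Trp53 itself, Bax, Zmat3 and Gadd45a rose by 0.77, 1.10, 1.03 and 1.11. The apoptosis genes Pmaip1 and Fas fell, Pmaip1 at 1.99, 1.6 and 1.63 FPKM in the tumors and 20.6 and 15 FPKM in the WT lungs (log2 difference -2.77, SE 0.17, adjusted p = 2.43e-04) and Fas at 11.2, 9.45 and 11.1 FPKM in the tumors and 45.2 and 48.7 FPKM in the WT lungs (log2 difference -2.05, SE 0.13, adjusted p = 2.30e-04). Cdkn1a and Mdm2, the most used readouts of p53, did not pass (0.08 and -0.15), and Cdkn1a was at 45.1, 70.8 and 85 FPKM in the tumors and 76.5 and 49 FPKM in the WT lungs. The counts of this list stayed within 1.5 times of these numbers when 1 library was left out. Leaving out 1 library ended calls without tumor 2, tumor 3, WT 1 or WT 2 for Bax (highest adjusted p = 0.123). The same was so with sex as a covariate for Bax.

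Of autophagy and lysosome genes, 6 of 35 tested rose and 1 fell, with a median log2 difference of 0.11 that took the other sign without small RNA genes, and the share that rose (17.1%) was near the 15.5% of all genes. Cathepsin H, Ctsh, which processes surfactant proteins, was at 1252, 1092 and 1079.9 FPKM in the tumors and 192 and 128 FPKM in the WT lungs (log2 difference 2.85, SE 0.20, adjusted p = 3.00e-04). Cathepsins D and S rose by 1.78 and 1.82, and the cholesterol carrier Npc2 was at 529.8, 622 and 586 FPKM in the tumors and 186 and 169.7 FPKM in the WT lungs (log2 difference 1.70, SE 0.18, adjusted p = 9.77e-04). Lamp3, a lysosomal protein of lamellar bodies, rose by 1.49. The adaptor Sqstm1 and the autophagy genes Becn1, Atg5, Atg7, Map1lc3a and Map1lc3b did not pass (-0.35, -0.52, -0.03, 0.35, -0.65 and -0.19), and Gabarapl1 fell by 1.24. Ctsb and Ctsl, other cathepsins, did not pass (0.28 and -0.13). Several cathepsins are abundant in macrophages, whose markers rose in 6 of 12 cases, and Ctsh and Lamp3 belong to alveolar type 2 cells, whose markers rose in 7 of 10, and the part of these cells was not tested. Of proteasome subunits, 4 of 30 tested rose and 2 fell, with a median log2 difference of 0.21. The proteasome share that rose (13.3%) was also near that of all genes. The genes that fell were the immunoproteasome subunits Psmb9 and Psmb10. Psmb10 was at 22.5, 16.5 and 20.7 FPKM in the tumors and 45.3 and 43.5 FPKM in the WT lungs (log2 difference -1.13, SE 0.15, adjusted p = 0.00232). The constitutive subunits Psmb5 and Psmb7 rose by 0.39 and 0.90. The lysosome counts ran from 4 (without WT 2) to 13 (without tumor 1) higher and from 1 (without tumor 2, WT 1 or WT 2) to 5 (without tumor 1) lower and the proteasome counts from 0 (without WT 1 or WT 2) to 15 (without tumor 1) higher and from 1 (without tumor 2 or WT 1) to 7 (without tumor 1) lower. The call was lost without tumor 2 or WT 1 for Psmb9 (highest adjusted p = 0.174) and without tumor 2, tumor 3, WT 1 or WT 2 for Psmb5 and Psmb7 (highest adjusted p 0.132 to 0.266). A call was also lost with sex as a covariate for Psmb5 and Psmb7, in a fit of the 5 libraries alone for Psmb9, Psmb5 and Psmb7 and under at least 1 other scaling for Psmb5 and Psmb7.

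**Figure D3:**
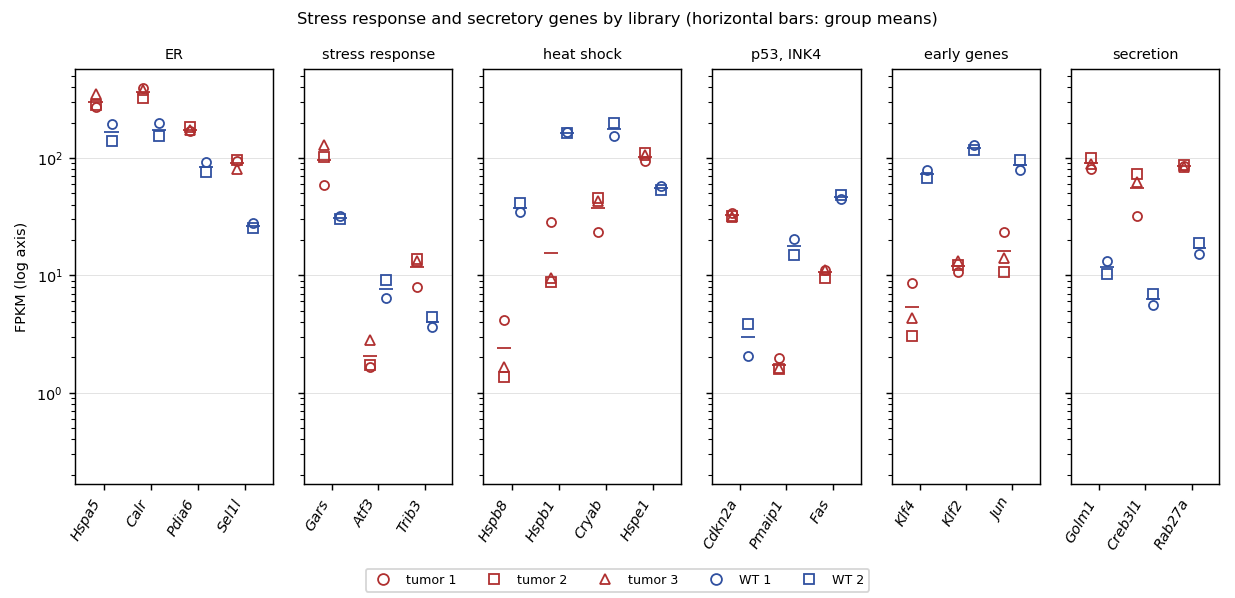
FPKM (log axis) of stress response and secretory genes in each tumor (red) and WT lung (blue), with horizontal bars at the group means. The ER genes and the secretory genes are higher in all 3 tumors, the small heat shock proteins and early genes lower. No gene shown has overlapping groups, as for every called gene.

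Of translocon, signal peptidase and glycosylation genes, 7 of 28 tested rose and 1 fell, with a median log2 difference of 0.10 that took the other sign without small RNA genes. Ssr2 and Sec61a1 of the translocon rose by 0.75 and 0.64, and the signal peptidase subunits Sec11a and Sec11c by 0.70 and 0.58. Ssr2 lay between 101 and 103 FPKM in the tumors and at 64 and 57 FPKM in the WT lungs. Of COPII, COPI and Golgi genes, 6 of 34 tested rose and 1 fell, with a median log2 difference of 0.23. In this list the share that rose (17.6%) was near the 15.5% of all genes. Golm1, a Golgi membrane protein, was at 80.9, 100.3 and 89.5 FPKM in the tumors and 13.4 and 10.3 FPKM in the WT lungs (log2 difference 2.84, SE 0.16, adjusted p = 2.22e-04). Creb3l1, a transcription factor released from ER membranes that acts on secretory genes, was at 32.1, 73.2 and 62.6 FPKM in the tumors and 5.55 and 6.98 FPKM in the WT lungs (log2 difference 2.90, SE 0.39, adjusted p = 0.00246). Coat subunits changed less, with Sec16a, Copb1 and Sec13 higher by 0.60, 0.53 and 0.48 and Sec24b lower by 0.41. The translocon counts ran from 1 (without WT 2) to 11 (without tumor 1) higher and from 0 (without WT 1 or WT 2) to 6 (without tumor 1) lower and the coat and Golgi counts from 2 (without tumor 3, WT 1 or WT 2) to 15 (without tumor 1) higher and from 0 (without tumor 2, tumor 3, WT 1 or WT 2) to 9 (without tumor 1) lower. Refitting on the other libraries ended calls without WT 1 or WT 2 for Sec61a1 (highest adjusted p = 0.103), without WT 2 for Sec11a and Sec11c (adjusted p 0.0589 to 0.123), without tumor 2, tumor 3, WT 1 or WT 2 for Sec16a, Copb1 and Sec24b (highest adjusted p 0.103 to 0.161) and without tumor 3, WT 1 or WT 2 for Sec13 (highest adjusted p = 0.104). The threshold was also missed with sex as a covariate for Sec16a and Sec24b, in a fit of the 5 libraries alone for Sec24b and under at least 1 other scaling for Sec16a and Copb1.

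Exocytosis genes differed in both directions. Of this list, 7 of 23 tested rose and 9 fell, with a median log2 difference of 0.10 that took the other sign without small RNA genes and in 4 other alternatives. Rab27a, a GTPase of secretory granules, was at 85.2, 87.6 and 83.7 FPKM in the tumors and 15.3 and 18.8 FPKM in the WT lungs (log2 difference 2.27, SE 0.13, adjusted p = 2.23e-04), and Rab38, which serves lamellar bodies, rose by 1.73. The SNARE regulator Stxbp2, known from epithelial and hematopoietic cells, was at 59, 107 and 106 FPKM in the tumors and 22.6 and 18.8 FPKM in the WT lungs (log2 difference 2.03, SE 0.29, adjusted p = 0.00292). The proprotein convertases Furin and Pcsk6 rose by 0.85 and 1.17, and Pcsk5 and the carboxypeptidase Cpe fell by 1.70 and 2.05. Exocytosis counts ran from 3 (without WT 2) to 11 (without tumor 1) higher and from 4 (without WT 1 or WT 2) to 10 (without tumor 1) lower. Among the genes named here calls ended without tumor 2, tumor 3, WT 1 or WT 2 for Rab38 and Furin (highest adjusted p 0.12 to 0.142), without WT 1 or WT 2 for Pcsk5 (highest adjusted p = 0.088) and without tumor 2, WT 1 or WT 2 for Cpe (highest adjusted p = 0.135). Calls were lost as well with sex as a covariate for Rab38, Furin and Cpe and in a fit of the 5 libraries alone for Rab38.

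Surfactant and lamellar body genes had the largest share of members higher of any program. Of this list, 9 of 12 tested rose and none fell, with a median log2 difference of 1.58. Sftpd, a collectin, was at 2453, 1383 and 1449 FPKM in the tumors and 455 and 329 FPKM in the WT lungs (log2 difference 2.13, SE 0.30, adjusted p = 0.003). Sftpb, the protein that spreads the surfactant film, was at 2664, 6954 and 6779 FPKM in the tumors and 1386 and 1096 FPKM in the WT lungs (log2 difference 2.02, SE 0.50, adjusted p = 0.0221). For Sftpd tumor 1 was the highest tumor, and for Sftpb the lowest. Sftpc did not pass and was listed at 35944, 0 and 0 FPKM in the tumors and at 15915 and 13050.0 FPKM in the WT lungs. With it the list summed to 45197, 14072 and 14127 FPKM in the tumors and 19484 and 15627 FPKM in the WT lungs. In this sum tumors 2 and 3 lay below both WT lungs, with Sftpc entered at 0 for them. Whether these 0s are missing values is not stated. Every member that rose was higher in all 3 tumors than in both WT lungs, but groups did not overlap for any called gene of any list. The lipid transporter Abca3, the phosphate transporter Slc34a2 and Sftpa1 rose by 1.54, 2.05 and 1.62. Many of these genes are also alveolar type 2 markers, and the part of those cells was not tested. Its counts stayed at 6 or more when 1 library was left out. The test was no longer passed without tumor 2, tumor 3, WT 1 or WT 2 for Sftpb and Sftpa1 (highest adjusted p 0.134 to 0.15). Further losses came with sex as a covariate for Sftpb and Sftpa1 and under at least 1 other scaling for Sftpb and Sftpa1.

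Some other secreted proteins differed strongly in both directions. Of secreted airway and epithelial proteins, 5 of 24 tested rose and 7 fell, with a median log2 difference of -0.22 that took the other sign in 3 alternatives. These shares (20.8% and 29.2%) were near the 15.5% and 23.0% of all genes. Among the genes that rose, Scgb1a1 was listed at 0 in both WT lungs. Scgb3a2, a secretoglobin of airway cells, was at 14.1, 47.3 and 98.9 FPKM in the tumors and 1056 and 797 FPKM in the WT lungs (log2 difference -4.46, SE 0.73, adjusted p = 0.00507). Gkn2, a stomach secretory protein, was at 381, 24.2 and 8.91 FPKM in the tumors and 0.103 and 0.255 FPKM in the WT lungs (log2 difference 5.28, SE 1.43, adjusted p = 0.0301), and Muc1 and Muc20, membrane mucins, rose by 1.85 and 2.19. Bpifa1, an airway antimicrobial protein, did not pass, at 28.7, 12907 and 15754 FPKM in the tumors and 90.5 and 20.1 FPKM in the WT lungs, with tumors 2 and 3 far above all others. Of complement, coagulation and acute phase genes, 8 of 24 tested rose and 9 fell, with a median log2 difference of 0.19 that took the other sign in 2 alternatives. The acute phase genes Orm1 and Saa3 rose, Orm1 at 22.9, 75.7 and 72.4 FPKM in the tumors and 0.622 and 2.07 FPKM in the WT lungs (log2 difference 4.52, SE 0.57, adjusted p = 0.00188) and Saa3 at 17.3, 177 and 192 FPKM in the tumors and 3.36 and 3.04 FPKM in the WT lungs (log2 difference 4.35, SE 1.02, adjusted p = 0.0182). The C1q chains rose, by 1.64, 1.75 and 1.63 for C1qa, C1qb and C1qc, which macrophages make and of which C1qa is itself one of the 12 macrophage markers. The complement proteins C3, C2 and C4b fell by 1.44, 2.89 and 2.91, with C3 at 47.5, 33.5 and 61.3 FPKM in the tumors and 143 and 111 FPKM in the WT lungs. The airway protein counts ran from 2 (without WT 2) to 9 (without tumor 1) higher and from 4 (without tumor 2 or WT 1) to 9 (without tumor 1) lower and the complement counts from 4 (without WT 2) to 9 (without tumor 1) higher and from 4 (without WT 1) to 11 (without tumor 1) lower. A call was not kept without tumor 2, WT 1 or WT 2 for Gkn2 and Saa3 (highest adjusted p 0.101 to 0.135), without WT 2 for Muc1, C1qb and C1qc (adjusted p 0.0781 to 0.103), without WT 1 or WT 2 for Muc20 (highest adjusted p = 0.0682), without tumor 3 or WT 2 for C1qa (highest adjusted p = 0.162), without WT 1 for C3 (adjusted p = 0.0619) and without tumor 2, tumor 3, WT 1 or WT 2 for C4b (highest adjusted p = 0.174). Other fits ended calls with sex as a covariate for Saa3, C1qa, C1qc and C4b and in a fit of the 5 libraries alone for Gkn2 and C4b.

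Protease inhibitors also split. Of serpins, cystatins and kallikreins, 5 of 15 tested rose and 6 fell, with a median log2 difference of -0.64. Spint1 and Spint2, inhibitors of epithelial membrane proteases, rose by 1.96 and 1.24, and Spint1 was at 53.5, 118 and 114 FPKM in the tumors and 23.6 and 21.1 FPKM in the WT lungs. The serum-type serpins Serpina3n, Serping1 and Serpina1b fell by 3.02, 2.60 and 2.41, where Serpina1b has near-identical copies that could share its reads. Other secreted serpins, Serpinf1 and Serpine2, rose by 1.04 and 0.98. Serping1, the inhibitor of C1, was at 71.8, 18 and 35.4 FPKM in the tumors and 206 and 241 FPKM in the WT lungs. The inhibitor counts ran from 3 (without WT 1 or WT 2) to 5 (without tumor 1 or tumor 3) higher and from 2 (without WT 1 or WT 2) to 9 (without tumor 1) lower. Calls ended without WT 1 or WT 2 for Spint1 and Serping1 (highest adjusted p 0.0751 to 0.083), without tumor 2, tumor 3, WT 1 or WT 2 for Serpina3n and Serpina1b (highest adjusted p 0.158 to 0.17) and without tumor 2, WT 1 or WT 2 for Serpinf1 (highest adjusted p = 0.126). Calls ended too with sex as a covariate for Spint1, Serpina3n and Serpina1b and in a fit of the 5 libraries alone for Serpina3n and Serpinf1.

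All signaling lists but that of ERK targets had more members that fell than rose, as all genes did. ERK targets rose in 30.0% of cases. Of ERK feedback genes and ETS factors, 6 of 20 tested rose and 1 fell, with a median log2 difference of 0.72. Etv4, an ETS factor that ERK induces, was at 27.6, 16.8 and 13.5 FPKM in the tumors and 0.292 and 0.272 FPKM in the WT lungs (log2 difference 3.92, SE 0.30, adjusted p = 3.59e-04), or 19.3 ± 7.41 against 0.282 ± 0.0142 FPKM on average, the phosphatase Dusp4 at 79.1, 59.5 and 50.7 FPKM in the tumors and 3.67 and 3.17 FPKM in the WT lungs (log2 difference 3.84, SE 0.24, adjusted p = 2.30e-04). Spred1, which restrains RAS, was at 118, 144 and 125 FPKM in the tumors and 15.9 and 12.9 FPKM in the WT lungs (log2 difference 3.08, SE 0.15, adjusted p = 1.74e-04). Spry1 and cyclin D1, Ccnd1, rose by 1.34 and 1.41. Other members did not pass, among them Dusp6 at 119, 55.7 and 47 FPKM in the tumors and 52.3 and 65.5 FPKM in the WT lungs and Etv5 at 73.7, 34.3 and 27.7 FPKM in the tumors and 26.7 and 20.5 FPKM in the WT lungs, for both of which tumor 1 was above tumors 2 and 3. Egr1 did not pass (0.12), and Ier3 fell by 1.39. The ERK counts ran from 4 (without tumor 2, WT 1 or WT 2) to 11 (without tumor 1) higher and from 0 (without WT 2) to 2 (without tumor 1) lower. Leaving out 1 library ended calls without tumor 2, tumor 3, WT 1 or WT 2 for Ccnd1 (highest adjusted p = 0.155) and without WT 2 for Ier3 (adjusted p = 0.108). The same was so with sex as a covariate for Ccnd1, in a fit of the 5 libraries alone for Ccnd1 and under at least 1 other scaling for Ccnd1.

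Growth factor receptors and their ligands differed in both directions. Of receptors and ligands of the EGFR, FGFR, MET, KIT and PDGF families, 5 of 27 tested rose and 12 fell, with a median log2 difference of -0.79. The share that rose (18.5%) was near the 15.5% of all genes, and 44.4% fell against their 23.0%. Fgfr2, the epithelial receptor for Fgf7 and Fgf10, was at 123, 177 and 161 FPKM in the tumors and 24.6 and 19.7 FPKM in the WT lungs (log2 difference 2.73, SE 0.28, adjusted p = 9.20e-04). Met, the receptor of hepatocyte growth factor, was at 21.1, 27 and 24.2 FPKM in the tumors and 8.72 and 6.55 FPKM in the WT lungs (log2 difference 1.54, SE 0.20, adjusted p = 0.00225). Erbb3 rose by 1.04, and Egfr fell by 1.84. The Fgfr2 ligands Fgf7 and Fgf10, made by mesenchyme, fell by 2.58 and 1.91, and Fgfr3 and Fgfr4 by 2.60 and 2.54. Kit was at 2.4, 1.28 and 1.36 FPKM in the tumors and 26.2 and 30.9 FPKM in the WT lungs (log2 difference -3.48, SE 0.27, adjusted p = 3.82e-04), and its ligand Kitl fell by 2.67. Pdgfb, which endothelium secretes to recruit pericytes, was at 11.5, 4.4 and 5.29 FPKM in the tumors and 46.2 and 55.1 FPKM in the WT lungs (log2 difference -2.78, SE 0.42, adjusted p = 0.00391), and Pdgfra of fibroblasts fell by 2.40. Endothelial markers fell in 14 of 14 cases and fibroblast markers in 3 of 10 (1 rose; summed 162 to 607 against 569.5 to 724 FPKM) beside these genes, and their part was not tested. The receptor counts ran from 3 (without WT 1 or WT 2) to 7 (without tumor 1) higher. The call was lost without WT 1 or WT 2 for Erbb3 and Fgfr4 (highest adjusted p 0.0796 to 0.122), without WT 2 for Kitl (adjusted p = 0.0503) and without tumor 2, tumor 3, WT 1 or WT 2 for Pdgfra (highest adjusted p = 0.155). A call was also lost with sex as a covariate for Pdgfra and in a fit of the 5 libraries alone for Pdgfra.

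In the insulin and IGF axis the binding proteins stood out. Of this list, 4 of 29 tested rose and 6 fell, with a median log2 difference of -0.23 that took the other sign in 1 alternative. These shares (13.8% and 20.7%) were near the 15.5% and 23.0% of all genes. Igfbp2 was at 7.32, 1.35 and 3.53 FPKM in the tumors and 168 and 203 FPKM in the WT lungs (log2 difference -5.38, SE 0.49, adjusted p = 6.07e-04) and Igfbp6 at 8.43, 0.266 and 1.2 FPKM in the tumors and 117 and 136 FPKM in the WT lungs (log2 difference -5.42, SE 0.79, adjusted p = 0.00335). Igfbp3, the main serum carrier of IGF, rose by 1.14. Insr and Akt1 rose by 0.57 and 0.60. The adaptor Irs1 did not pass, at 5.83, 29.3 and 29.5 FPKM in the tumors and 3.18 and 3.86 FPKM in the WT lungs, with tumors 2 and 3 above all others, nor did Igf1, at 15.2, 2.31 and 3.3 FPKM in the tumors and 0.781 and 0.762 FPKM in the WT lungs, where tumor 1 was highest. Insulin and IGF counts ran from 0 (without tumor 3, WT 1 or WT 2) to 8 (without tumor 1) higher and from 2 (without WT 1 or WT 2) to 15 (without tumor 1) lower. Refitting on the other libraries ended calls without tumor 2, tumor 3, WT 1 or WT 2 for Igfbp3, Insr and Akt1 (highest adjusted p 0.131 to 0.228). The threshold was also missed with sex as a covariate for Igfbp3 and Akt1, in a fit of the 5 libraries alone for Igfbp3 and under at least 1 other scaling for Igfbp3 and Akt1.

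Notch genes fell in 57.7% of cases. Of this list, 1 of 26 tested rose and 15 fell, with a median log2 difference of -0.91. The ligands Dll1 and Dll4 fell by 2.77 and 2.08, and Jag1 did not pass, at 9.24, 14.4 and 15.9 FPKM in the tumors and 12.2 and 13.3 FPKM in the WT lungs. The endothelial receptor Notch4 was at 7.31, 3.88 and 3.88 FPKM in the tumors and 34.3 and 36 FPKM in the WT lungs (log2 difference -2.63, SE 0.28, adjusted p = 0.00102), Notch3 of pericytes fell by 1.47, and Notch1 was at 14.1, 14.1 and 14.7 FPKM in the tumors and 26.3 and 26.7 FPKM in the WT lungs (log2 difference -0.84, SE 0.10, adjusted p = 0.00171). The target Hey1 was at 4.91, 3.14 and 3.5 FPKM in the tumors and 36.1 and 48 FPKM in the WT lungs (log2 difference -3.15, SE 0.35, adjusted p = 0.00128). Hes1, a target in epithelium too, was at 31.8, 25.1 and 23.9 FPKM in the tumors and 37.5 and 49.3 FPKM in the WT lungs (log2 difference -0.66, SE 0.19, adjusted p = 0.0387). The core components Rbpj, Maml1 and Adam10 did not pass (-0.06, -0.06 and 0.00). Endothelial markers fell in 14 of 14 cases, from a sum of 2193 and 2614 to at most 236 FPKM, beside this list, and their part was not tested. Notch counts ran from 0 (without tumor 2, tumor 3, WT 1 or WT 2) to 3 (without tumor 1) higher and from 9 (without WT 2) to 18 (without tumor 1) lower. Among the genes named here calls ended without WT 2 for Dll4 (adjusted p = 0.0698) and without tumor 2, tumor 3, WT 1 or WT 2 for Hes1 (highest adjusted p = 0.243). Calls were lost as well with sex as a covariate for Hes1 and in a fit of the 5 libraries alone for Hes1.

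TGF-beta and BMP genes fell in 43.6% of cases. Of its genes, 4 of 39 tested rose and 17 fell, with a median log2 difference of -0.39. Bmp6, a ligand, was at 2.73, 1.7 and 1.6 FPKM in the tumors and 52.6 and 67.5 FPKM in the WT lungs (log2 difference -4.35, SE 0.29, adjusted p = 2.59e-04). The endothelial receptor Acvrl1 was at 12.2, 5.95 and 7.52 FPKM in the tumors and 152 and 168 FPKM in the WT lungs (log2 difference -4.12, SE 0.27, adjusted p = 2.59e-04). The inhibitory SMAD Smad6 was at 6.53, 7.72 and 7.63 FPKM in the tumors and 90.2 and 105 FPKM in the WT lungs (log2 difference -3.57, SE 0.15, adjusted p = 1.47e-04). Eng and Tgfbr3, coreceptors, fell by 2.91 and 2.71, and the inhibitory Smad7 fell by 1.00, at 9.38, 10.8 and 9.33 FPKM in the tumors and 20.2 and 21.1 FPKM in the WT lungs. Among the ID proteins, usual BMP targets, Id2 was at 319, 508 and 343 FPKM in the tumors and 39.5 and 37.5 FPKM in the WT lungs (log2 difference 3.28, SE 0.27, adjusted p = 4.26e-04), Id3 and Id4 fell by 1.72 and 1.49, and Id1 did not pass (0.21). The type I receptor Tgfbr1 and the procollagen proteinase Bmp1 rose by 1.52 and 1.76. Smad1, Smad2, Smad3 and Smad5 did not pass (-0.11, -0.01, 0.30 and 0.03). Acvrl1 and Eng are endothelial genes, and the fall of the endothelial markers stood beside them, and its part was not tested. The counts of this list ran from 1 (without WT 1 or WT 2) to 6 (without tumor 1) higher. The test was no longer passed without WT 1 or WT 2 for Tgfbr1 and Bmp1 (highest adjusted p 0.0803 to 0.103).

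Genes of cAMP, cGMP and calcium signaling fell in 50.0% of cases. Of this list, 1 of 36 tested rose and 18 fell, with a median log2 difference of -0.93. Calcrl and Ramp2, which form the adrenomedullin receptor, fell by 4.25 and 4.86 and are also endothelial markers. Ramp2 was at 20.5, 13.6 and 18 FPKM in the tumors and 439.6 and 626 FPKM in the WT lungs. The beta-adrenergic receptor Adrb1 fell by 3.37, at 1.32, 0.329 and 0.334 FPKM in the tumors and 14.1 and 17.1 FPKM in the WT lungs. The subunits of soluble guanylate cyclase, Gucy1a3 and Gucy1b3, which respond to nitric oxide in vessel walls, fell by 2.64 and 2.80, the phosphodiesterases Pde3a and Pde5a by 3.03 and 2.43, and the endothelin receptors Ednra and Ednrb by 1.91 and 2.74. The catalytic subunits Prkaca and Prkacb and the factor Creb1 did not pass (0.31, -0.29 and -0.15). The phosphodiesterase Pde7b rose (1.56). The markers of endothelium (14 of 14) and of smooth muscle and pericytes (6 of 8) fell beside this list, and their part was not tested. With a tumor left out, the counts for cAMP, cGMP and calcium signaling ran from 1 (without tumor 2 or tumor 3) to 3 (without tumor 1) higher.

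**Figure D4:**
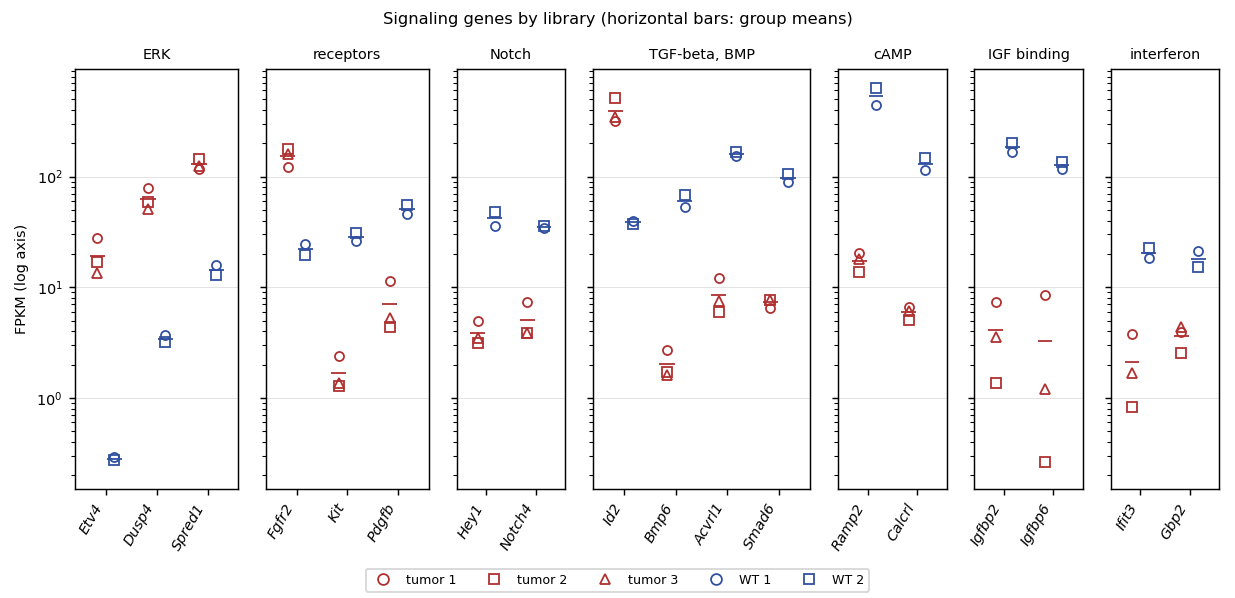
FPKM (log axis) of signaling genes in each tumor (red) and WT lung (blue), with horizontal bars at the group means. The ERK targets, Fgfr2 and Id2 are higher in all 3 tumors, and the other genes are lower in all 3.

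Members of the Wnt, Hippo and Hedgehog lists fell in 33.3%, 42.9% and 33.3% of cases. Of Wnt genes, 3 of 36 tested rose and 12 fell, with a median log2 difference of -0.27. Rspo1, an R-spondin of mesothelium, was at 0.719, 0.0837 and 0.481 FPKM in the tumors and 9.67 and 8.87 FPKM in the WT lungs (log2 difference -2.87, SE 0.25, adjusted p = 5.55e-04). The T cell factor Tcf7 was at 2.22, 0.811 and 0.846 FPKM in the tumors and 13.6 and 9.97 FPKM in the WT lungs (log2 difference -2.52, SE 0.30, adjusted p = 0.0015). Wnt3a, Wnt4, Wnt7a, Wnt9a and Wnt11 fell by 2.13, 1.65, 1.38, 1.70 and 1.96. Axin2, the general readout of the pathway, did not pass, at 4.03, 0.287 and 0.383 FPKM in the tumors and 6.33 and 6.46 FPKM in the WT lungs (adjusted p = 0.052), and tumor 1 lay closer to the WT lungs than tumors 2 and 3. The receptor Fzd7 rose (log2 difference 1.97, SE 0.50, adjusted p = 0.0243). Mesothelial markers (4 of 4) and T and NK cell markers (5 of 9) fell beside Rspo1 and Tcf7, and their part was not tested. Of Hippo-YAP genes, none of 21 tested rose and 9 fell, with a median log2 difference of -0.61. The YAP targets Ankrd1 and Ctgf fell, Ankrd1 at 1.28, 1.04 and 1.34 FPKM in the tumors and 32.2 and 54.8 FPKM in the WT lungs (log2 difference -4.28, SE 0.41, adjusted p = 7.51e-04) and Ctgf at 76, 18.7 and 29.3 FPKM in the tumors and 138 and 203 FPKM in the WT lungs (log2 difference -2.23, SE 0.59, adjusted p = 0.028). Yap1 and Wwtr1 did not pass (-0.67 and -0.61). Ankrd1 is abundant in heart muscle, whose 8 markers all fell, and the part of that muscle was not tested. Of Hedgehog genes, 1 of 12 tested rose and 4 fell, with a median log2 difference of -0.76. The ligand Shh was at 11.9, 13.9 and 10.3 FPKM in the tumors and 3.04 and 3.63 FPKM in the WT lungs (log2 difference 1.58, SE 0.21, adjusted p = 0.00214), and the coreceptors Boc and Gas1 and the inhibitor Hhip fell by 2.52, 2.50 and 1.76, while the targets Gli1, at 2.2, 0.223 and 0.114 FPKM in the tumors and 1.87 and 2.71 FPKM in the WT lungs, and Ptch1 (-0.93) did not pass. The Wnt counts ran from 0 (without tumor 2, WT 1 or WT 2) to 6 (without tumor 1) higher and from 6 (without WT 2) to 20 (without tumor 1) lower, the Hippo counts from 3 (without WT 1) to 13 (without tumor 1) lower and the Hedgehog counts from 4 (without tumor 2, tumor 3, WT 1 or WT 2) to 8 (without tumor 1) lower. A call was not kept without WT 2 for Wnt4 (adjusted p = 0.0644), without tumor 2, tumor 3, WT 1 or WT 2 for Wnt7a and Ctgf (highest adjusted p 0.161 to 0.207), without WT 1 or WT 2 for Wnt11 (highest adjusted p = 0.0829) and without tumor 2, WT 1 or WT 2 for Fzd7 (highest adjusted p = 0.128). Other fits ended calls with sex as a covariate for Wnt7a and Ctgf, in a fit of the 5 libraries alone for Wnt7a and under at least 1 other scaling for Wnt7a.

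Interferon genes fell in 46.4% of cases, and NF-kB genes in a share near that of all genes (25.0% against 23.0%). Of NF-kB and inflammatory genes, 2 of 28 tested rose and 7 fell, with a median log2 difference of -0.11 that took the other sign after quantile normalization. Cyclooxygenase Ptgs2 was at 0.554, 0.269 and 0.359 FPKM in the tumors and 5.25 and 5.83 FPKM in the WT lungs (log2 difference -2.23, SE 0.15, adjusted p = 2.59e-04). The adhesion molecule Icam1 was at 58.9, 27.2 and 25.9 FPKM in the tumors and 143 and 142 FPKM in the WT lungs (log2 difference -2.01, SE 0.38, adjusted p = 0.00851), and the inhibitor Nfkbia, itself an NF-kB target, fell by 1.77. The chemokine Cxcl1 rose (log2 difference 1.82, SE 0.55, adjusted p = 0.0419), highest in tumor 1. Of JAK-STAT and interferon genes, none of 28 tested rose and 13 fell, with a median log2 difference of -0.91. Ifit3 was at 3.8, 0.822 and 1.68 FPKM in the tumors and 18.4 and 22.6 FPKM in the WT lungs (log2 difference -2.90, SE 0.42, adjusted p = 0.00314). Gbp2, an interferon-induced GTPase, was at 3.97, 2.55 and 4.33 FPKM in the tumors and 21.1 and 15.1 FPKM in the WT lungs (log2 difference -2.05, SE 0.28, adjusted p = 0.00259). Bst2, tetherin, was at 40, 34.8 and 42.2 FPKM in the tumors and 102 and 91.2 FPKM in the WT lungs (log2 difference -1.29, SE 0.15, adjusted p = 0.0013). Stat2, which carries the signal, fell by 1.33, and Irf1 and Irf7 by 1.58 and 1.34. Socs1, Socs3 and Mx1 did not pass (0.16, 0.35 and 1.58). Endothelial (14 of 14) and lymphocyte markers (T and NK 5 of 9, summed 7.97 to 16.9 against 31.9 to 53.7 FPKM; B and plasma 5 of 9, 20.6 to 58.8 against 136 to 387 FPKM, with Pax5 listed at 0 in tumor 3) fell beside these genes, and their part was not tested. The NF-kB counts ran from 3 (without WT 1) to 12 (without tumor 1) lower and the interferon counts from 7 (without WT 1) to 23 (without tumor 1) lower. Calls ended without WT 1 or WT 2 for Icam1 (highest adjusted p = 0.0592), without tumor 3, WT 1 or WT 2 for Cxcl1 (highest adjusted p = 0.175), without WT 1 for Stat2 (adjusted p = 0.0649) and without tumor 2, tumor 3, WT 1 or WT 2 for Irf7 (highest adjusted p = 0.185). Calls ended too with sex as a covariate for Irf7 and in a fit of the 5 libraries alone for Cxcl1 and Irf7.

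Ifit3 and Bst2 are shown as examples of members that fell and hold the interferon-stimulated response element in their windows. Capitals mark GAAA repeated after any 2 bases, on either strand, in the 250 bases before the first start listed in RefSeq (GRCm38.p6), and in Bst2 the 2 matches overlap. Ifit3 is at chr19:34583279-34583528 on the plus strand and Bst2 at chr8:71537473-71537722 on the minus strand.
Ifit3: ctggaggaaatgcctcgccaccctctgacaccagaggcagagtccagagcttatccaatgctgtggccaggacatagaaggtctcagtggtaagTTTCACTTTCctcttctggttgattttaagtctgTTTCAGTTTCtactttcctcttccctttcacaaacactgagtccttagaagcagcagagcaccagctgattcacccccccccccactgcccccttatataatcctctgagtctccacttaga
Bst2: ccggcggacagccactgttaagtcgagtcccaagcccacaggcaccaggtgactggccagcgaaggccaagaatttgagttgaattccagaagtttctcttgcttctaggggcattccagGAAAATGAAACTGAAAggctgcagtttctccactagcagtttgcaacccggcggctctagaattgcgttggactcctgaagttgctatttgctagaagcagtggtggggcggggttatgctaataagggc
Each window held 2 matches, in reverse in Ifit3. The element occurred in 3.04% of 27025 promoters and in 10 of the 24 list members with an entry. Of these 10, Ifit3, Bst2, Ifit1, Gbp2, Gbp3 and Stat2 fell, by 2.90, 1.29, 1.56, 2.05, 1.28 and 1.33, and Isg15, Oas1a, Cxcl10 and Socs1 did not pass (-1.02, -0.66, -0.64 and 0.16).

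Polycomb genes differed by member. Of PRC2 genes, 4 of 11 tested rose and 1 fell, with a median log2 difference of 0.24. Beside Ezh2, the cofactor Jarid2 was at 7.65, 12.3 and 10.4 FPKM in the tumors and 4.79 and 4.87 FPKM in the WT lungs (log2 difference 0.91, SE 0.20, adjusted p = 0.0139), and Mtf2 and Rbbp7 rose by 0.50 and 0.42. The core partners Eed and Suz12, without which EZH2 is not active, did not pass (0.58 and -0.17). Ezh1, the alternative catalytic subunit of resting cells, was at 14.1, 8.65 and 8.71 FPKM in the tumors and 18.4 and 20.3 FPKM in the WT lungs (log2 difference -0.86, SE 0.22, adjusted p = 0.025). Of PRC1 genes, 4 of 22 tested rose and 3 fell, with a median log2 difference of 0.10 that took the other sign without small RNA genes and in 1 other alternative. The PRC1 share that rose (18.2%) was near the 15.5% of all genes, and the share that fell (13.6%) was below their 23.0%. Pcgf6 and Pcgf2 rose by 1.03 and 0.94. Pcgf5 was at 3.4, 3.44 and 3.7 FPKM in the tumors and 9.19 and 8.96 FPKM in the WT lungs (log2 difference -1.16, SE 0.13, adjusted p = 0.00118) and Cbx7, which reads the PRC2 mark, at 8.86, 11.7 and 14 FPKM in the tumors and 27.5 and 31 FPKM in the WT lungs (log2 difference -1.29, SE 0.23, adjusted p = 0.00671). Ring1, Rnf2 and Bmi1 of the catalytic core did not pass (0.12, 0.17 and 0.12). The PRC2 counts ran from 0 (without WT 1 or WT 2) to 6 (without tumor 1) higher and from 0 (without tumor 2, tumor 3, WT 1 or WT 2) to 4 (without tumor 1) lower and the PRC1 counts from 1 (without WT 1 or WT 2) to 5 (without tumor 1) higher and from 1 (without WT 2) to 9 (without tumor 1) lower. Leaving out 1 library ended calls without WT 1 or WT 2 for Ezh2, Jarid2 and Pcgf2 (highest adjusted p 0.0633 to 0.088), without tumor 2, WT 1 or WT 2 for Mtf2 (highest adjusted p = 0.173), without tumor 2, tumor 3, WT 1 or WT 2 for Rbbp7 and Ezh1 (highest adjusted p 0.149 to 0.189) and without WT 2 for Cbx7 (adjusted p = 0.061). The same was so with sex as a covariate for Mtf2, Rbbp7 and Ezh1, in a fit of the 5 libraries alone for Mtf2 and Ezh1 and under at least 1 other scaling for Mtf2 and Rbbp7.

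Among remodelers a few subunits stood out. Of SWI/SNF genes, 2 of 22 tested rose and 3 fell, with a median log2 difference of -0.12 that took the other sign in 1 alternative. Brd7, a bromodomain subunit of the PBAF form, was at 92, 108 and 110.4 FPKM in the tumors and 27.1 and 24.8 FPKM in the WT lungs (log2 difference 1.95, SE 0.13, adjusted p = 2.51e-04). The ATPase Smarca2 was at 22.8, 18 and 17.7 FPKM in the tumors and 64.4 and 71.4 FPKM in the WT lungs (log2 difference -1.75, SE 0.14, adjusted p = 4.26e-04). Its paralog Smarca4 did not pass (-0.02), nor did Arid1a (-0.40) or Smarcb1 (-0.10). Actl6a, the subunit of proliferating progenitors, rose by 0.97. Of NuRD, ISWI and other remodelers, 7 of 25 tested rose and 1 fell, with a median log2 difference of 0.12 that took the other sign without small RNA genes. Hells, a helicase needed for DNA methylation, rose by 1.13, Chd3 and Chd4 by 0.96 and 0.61, and Mbd2, which reads methylated DNA, was at 31.4, 32 and 31.6 FPKM in the tumors and 60.5 and 58.1 FPKM in the WT lungs (log2 difference -0.88, SE 0.11, adjusted p = 0.00166). The SWI/SNF counts ran from 1 (without tumor 3, WT 1 or WT 2) to 3 (without tumor 1) higher and from 2 (without WT 2) to 14 (without tumor 1) lower and the remodeler counts from 0 (without WT 1 or WT 2) to 10 (without tumor 1) higher. The call was lost without tumor 3, WT 1 or WT 2 for Actl6a (highest adjusted p = 0.117), without tumor 2, tumor 3, WT 1 or WT 2 for Hells (highest adjusted p = 0.193) and without WT 1 or WT 2 for Chd3 and Chd4 (highest adjusted p 0.0654 to 0.0715). A call was also lost with sex as a covariate for Actl6a and Hells and in a fit of the 5 libraries alone for Hells.

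**Figure D5:**
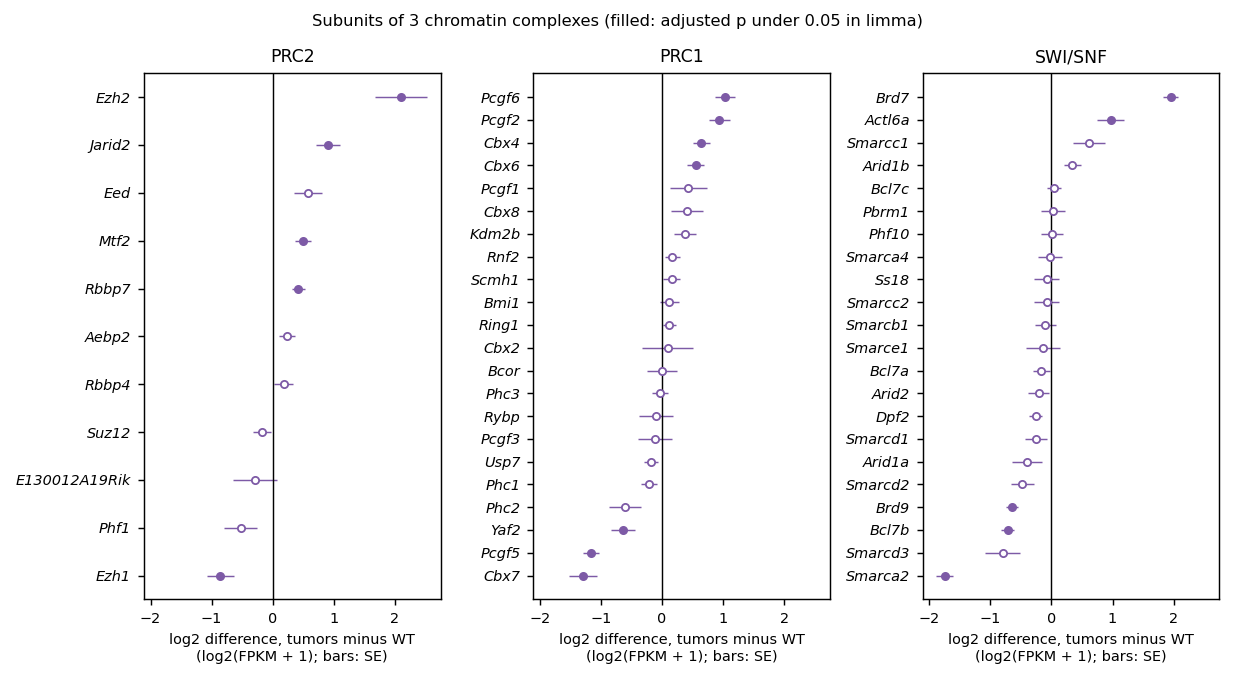
Log2 differences (tumors minus WT lung, log2(FPKM + 1) scale) with SE bars for the tested PRC2, PRC1 and SWI/SNF genes, ordered within each panel, filled where the limma adjusted p was under 0.05. Ezh2, Pcgf6 and Brd7 are at the upper ends and Ezh1, Cbx7 and Smarca2 at the lower ends.

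Of methyltransferases other than PRC2, 5 of 30 tested rose and 1 fell, with a median log2 difference of 0.19. The share that rose (16.7%) was near the 15.5% of all genes. The members that rose were led by Smyd5 (log2 difference 1.24, SE 0.19, adjusted p = 0.00393) and the arginine methyltransferase Prmt1 (log2 difference 1.00, SE 0.19, adjusted p = 0.00904). Prmt2 fell by 1.00. Of demethylases, 5 of 20 tested rose and 1 fell, with a median log2 difference of 0.08 that took the other sign after rescaling to TPM and without small RNA genes. Kdm5b, which removes H3K4 methylation, was at 15.2, 17.1 and 14.6 FPKM in the tumors and 7.26 and 7.34 FPKM in the WT lungs (log2 difference 1.00, SE 0.13, adjusted p = 0.00214). Kdm6a and Kdm6b, which remove the PRC2 mark, did not pass (0.39 and -0.36). Of acetyltransferases and bromodomain readers, 1 of 20 tested rose and 3 fell, with a median log2 difference of 0.10 that took the other sign without small RNA genes, with Trrap higher by 0.83 and the coactivator Ncoa3 at 6.57, 4.22 and 4.51 FPKM in the tumors and 15.1 and 13.1 FPKM in the WT lungs (log2 difference -1.33, SE 0.20, adjusted p = 0.00345). Of deacetylases and sirtuins, 1 of 22 tested rose and 3 fell, with a median log2 difference of -0.04 that took the other sign after median-of-ratios scaling, after quantile normalization and in 4 other alternatives, Hdac7, Hdac10 and Sirt7 being lower by 0.91, 0.88 and 0.62. Demethylase counts ran from 1 (without tumor 3, WT 1 or WT 2) to 6 (without tumor 1) higher and from 0 (without tumor 2, tumor 3, WT 1 or WT 2) to 6 (without tumor 1) lower, methyltransferase counts from 1 (without WT 2) to 11 (without tumor 1) higher and from 1 (without tumor 2, tumor 3, WT 1 or WT 2) to 7 (without tumor 1) lower, acetyltransferase counts from 1 (without tumor 2, tumor 3, WT 1 or WT 2) to 7 (without tumor 1) higher and from 1 (without tumor 2, tumor 3, WT 1 or WT 2) to 6 (without tumor 1) lower and deacetylase counts from 0 (without tumor 2, WT 1 or WT 2) to 5 (without tumor 1) higher and from 0 (without WT 1 or WT 2) to 8 (without tumor 1) lower. Refitting on the other libraries ended calls without WT 2 for Prmt1 (adjusted p = 0.0781), without WT 1 or WT 2 for Hdac7 and Hdac10 (highest adjusted p 0.107 to 0.115) and without tumor 2, tumor 3, WT 1 or WT 2 for Sirt7 (highest adjusted p = 0.213). The threshold was also missed with sex as a covariate for Hdac7, Hdac10 and Sirt7 and in a fit of the 5 libraries alone for Sirt7.

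DNA methylation genes and structural chromatin proteins differed by member. Of DNA methylation genes, 4 of 14 tested rose and 3 fell, with a median log2 difference of -0.01 that took the other sign after median-of-ratios scaling, after quantile normalization and in 6 other alternatives. The share that rose was 28.6% against 15.5% of all genes, and the share that fell (21.4%) was near their 23.0%. Zbtb38, which binds methylated DNA, was at 34, 24.3 and 20.6 FPKM in the tumors and 6.58 and 5.48 FPKM in the WT lungs (log2 difference 1.93, SE 0.22, adjusted p = 0.00138), and Tet2 and Dnmt3a rose by 0.78 and 0.57. Mbd1 was at 12.2, 15.3 and 16 FPKM in the tumors and 44.9 and 22.5 FPKM in the WT lungs (log2 difference -1.09, SE 0.30, adjusted p = 0.0319), with WT 1 far above WT 2. Dnmt1 did not pass (-0.06). Of histone variants, histone chaperones and HMG proteins, 12 of 34 tested rose and 2 fell, with a median log2 difference of 0.25. Hmgb3 was at 73.6, 47.2 and 47.1 FPKM in the tumors and 10.7 and 9.54 FPKM in the WT lungs (log2 difference 2.33, SE 0.22, adjusted p = 6.71e-04). Hmga1, an architectural protein of embryonic and tumor cells, was at 10.3, 22.7 and 17.8 FPKM in the tumors and 7.07 and 6.21 FPKM in the WT lungs (log2 difference 1.17, SE 0.31, adjusted p = 0.0288). Chaf1b of the replication-coupled assembly factor rose by 1.47 and the variant H2afz by 0.78. The DNA methylation counts ran from 0 (without WT 1) to 4 (without tumor 1) lower and the histone variant counts from 2 (without WT 2) to 17 (without tumor 1) higher and from 1 (without WT 2) to 6 (without tumor 1) lower. Among the genes named here calls ended without WT 1 for Tet2 (adjusted p = 0.0588), without WT 1 or WT 2 for Dnmt3a, Chaf1b and H2afz (highest adjusted p 0.0972 to 0.101), without tumor 2, tumor 3 or WT 1 for Mbd1 (highest adjusted p = 0.149) and without tumor 2, tumor 3, WT 1 or WT 2 for Hmga1 (highest adjusted p = 0.154). Calls were lost as well with sex as a covariate for Hmga1 and in a fit of the 5 libraries alone for Mbd1 and Hmga1.

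Of replication and mitosis genes, 8 of 28 tested rose and none fell, with a median log2 difference of 0.58. The helicase subunits Mcm7, Mcm2 and Mcm5 rose by 0.94, 0.94 and 0.91, with Mcm7 at 19.3, 19.7 and 15.7 FPKM in the tumors and 9.72 and 8.28 FPKM in the WT lungs. The proliferation marker Mki67 did not pass, at 4.22, 4.42 and 3.72 FPKM in the tumors and 3.33 and 1.31 FPKM in the WT lungs, where WT 1 was close to the tumors and WT 2 low. Of ribosome biogenesis genes, 7 of 22 tested rose and none fell, with a median log2 difference of 0.37. Nop58, Npm1 and Fbl of the nucleolus rose by 1.00, 0.93 and 0.82, and Npm1 was at 273, 248 and 219.6 FPKM in the tumors and 129.8 and 128 FPKM in the WT lungs. The replication counts ran from 1 (without WT 2) to 14 (without WT 1) higher and the nucleolar counts from 1 (without WT 2) to 10 (without tumor 1) higher and from 0 (without tumor 2, tumor 3, WT 1 or WT 2) to 3 (without tumor 1) lower. The test was no longer passed without WT 1 or WT 2 for Mcm2 (highest adjusted p = 0.102), without tumor 2, tumor 3 or WT 2 for Mcm5 (highest adjusted p = 0.192) and without WT 2 for Nop58 and Fbl (adjusted p 0.0569 to 0.0588). Further losses came with sex as a covariate for Mcm5 and in a fit of the 5 libraries alone for Mcm5.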

How the data were processed

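RNA-seq of 7 mouse lung libraries was used as FPKM (fragments mapped to a gene, scaled by transcript length and library size), which the authors deposited. Per the submitters' processing notes TopHat, TopHat2 and Cufflinks 2.0.0 were used and the build was mm9. The sources used here give no annotation, strand setting, library normalization or read total, and counting error per gene is unknown. Each table listed 22474 entries, and 27 that held dates in place of gene symbols were left out. Values were taken as log2(FPKM + 1), and 13656 of 22447 genes passed the minimum of 1 FPKM in 2 of the 5 tumor and WT libraries. The limma 3.58.1 fit in R 4.3.3 used a mean-variance trend, 3 groups sharing 1 spread, the contrast of tumors against WT lung, and Benjamini-Hochberg adjustment over all genes tested. It was also run on simulated data with independent noise of the same spread in every library. Such data lack the difference seen here between tumor 1 and tumors 2 and 3.

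The comparison and the gene lists were chosen with earlier results of these data known. The genes described first were Ezh2, the 8 highest and 8 lowest differences among called genes with groups that did not overlap, a higher mean of at least 5 FPKM and no library at 0, and in each list up to 3 called members (2 for markers) with the largest difference by the same limits except the one on 0, or, where none was called, the member with the smallest p. Other members were named after their values were seen. Alternatives were another pseudocount, filter, scaling, spread, sex covariate and replicate number as a block, small RNA genes left out, and each library left out in turn. Promoter sequences came from RefSeq. Some genes that this rule names are not reported here.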

Additional observations from a re-analysis of the deposited data

How the results depend on the processing

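Without 1 library the number of genes called ran from 2401 to 9323, with 605 to 4010 higher and 1796 to 5313 lower, and the lowest numbers came without WT 2 and the highest without tumor 1. Quantile normalization called 3232 genes higher. Replicate numbers appear in the titles, but same-numbered tumors and WT lungs did not deviate together (correlations of 0.021 and 0.036 across genes), and with the number as a block, where tumor 3 has no partner, the fit called 3003 genes, 927 higher and 2076 lower. The Ezh2 difference ran from 1.86 to 2.55 without 1 library, with adjusted p (limma) of 0.0509 without WT 1 and 0.0878 without WT 2. S100a9, a neutrophil gene that was not called, changed sign to 0.25 with sex as a covariate (adjusted p = 0.679), and the cause was not tested. Ezh2 is left out of the counts that follow. Of the 180 genes named by rule, 60 missed the threshold without WT 2, 54 without WT 1, 46 with the block, 30 and 27 without tumors 2 and 3, 29 with sex as a covariate, 18 in a fit of the 5 libraries alone, 6 after rescaling to TPM and 5 each without a filter and without small RNA genes, and at most 1 under any other alternative. With 2 WT lungs, leaving out 1 left only 1 library in that group, and absolute read depth is unknown.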
